A study of Mus musculus with 11 samples.

Results

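The comparison described here is between hearts of mice on an obesogenic diet and hearts of mice on a control diet. Its 8 libraries, 4 in each group, were chosen by their labels from the 11 libraries of the series, and 23779 genes that passed a low-count filter were tested. All mice were females of the inbred strain C57BL/6NTac, were put on their diets at 8 weeks of age and stayed on them for 24 weeks, per the labels' protocols. Fat supplied 10.4% of the energy of the control diet. The obesogenic diet joined a feed with 60.3% of its energy from fat to sweetened condensed milk. The obese mice compared here also received the vehicle 10% PEG400 by gavage, after week 16 of the diet. No source used here says whether mice on the control diet were gavaged, so diet and gavage cannot be told apart. The other 3 libraries, from obese mice given a mixture of dasatinib (5 mg/kg) with quercetin (50 mg/kg) in the same vehicle, entered the estimate of spread and the low-count filter, which passed 22106 genes when the 8 libraries were taken alone. Whether the 4 libraries of a group stand for 4 animals is not stated in the labels. The p-values therefore measure only how these libraries spread, and some of that spread may be technical.

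The adult heart meets most of its energy demand by oxidising fatty acids in mitochondria, and it can shift to glucose, lactate, ketone bodies or amino acids. The pyruvate dehydrogenase complex is the gate through which carbon from glucose enters the citric acid cycle, and its kinases close that gate when fatty acids are plentiful. Nuclear receptors of the PPAR family, activated by lipids, and the circadian clock, a transcriptional loop in which BMAL1 and CLOCK drive their own repressors, both set the levels of many of these enzymes in heart muscle. The bulk of cardiac messenger RNA comes from cardiomyocytes, whose sarcomere genes and mitochondrial transcripts dominate the libraries.

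In obese hearts, genes of fatty acid oxidation, pyruvate dehydrogenase and its kinases, the respiratory chain, the cytosolic ribosome and the proteasome were lower, and Arntl, the core clock activator, was low while Per2 and Per3 were high. Tfrc, Pfkfb2 and several minor collagen chains were higher. Levels are given as CPM (counts-per-million) after TMM scaling of library sizes, as mean ± SD over n = 4 libraries per group, and differences as log2 fold changes of obese against control diet with a standard error (SE). A value after log2 is such a fold change. A gene was called changed, risen or fallen, at an adjusted p under 0.05 in edgeR's quasi-likelihood test over all genes. By that rule 30.1% of the genes tested were called, 14.4% higher and 15.7% lower in obese hearts. These shares are the background against which each list's counts are set, and they pool genes of all classes and levels. The groups did not overlap in 28.5% of all genes tested, the background for counts of genes without overlap. The median log2 fold change over all genes was 0.11. Library totals ran from 73097532 to 103293081 counts on the control diet and from 52736860 to 67247567 counts in obese hearts. The share of counts on mitochondrially encoded genes was 29.9% ± 1.92 in control hearts and 22.97% ± 1.28 in obese hearts. The intronic share, which is the share of counts on sense-intronic and unverified (TEC) loci, was 0.399% ± 0.139 and 0.732% ± 0.063, with control replicate 2 highest among the controls at 0.590%. It was named for brevity: the genes tested held 1850 TEC and 243 sense-intronic loci, and reads in introns were not measured. For the totals and both shares the exact permutation p (2-sided) was 0.0286, the smallest possible with 4 against 4, and 0.0357 adjusted over 5 library measures.

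The split between higher and lower calls depended on the scaling. Upper-quartile scaling gave 4378 genes higher and 2926 lower, with the median of all genes 0.10 higher, and library totals with no further scaling gave 9061 higher and 960 lower and a median 0.42 higher. Changes below are therefore relative to the bulk of genes. Set against the median of all genes under the same scaling, none of 43 pathway lists changed side under any of 5 scalings, and no list median moved by more than 0.04. A scaling moves the log2 fold changes of all genes by nearly the same amount, so these relative medians could hardly move. They are no test of the lists. When the intronic share entered as a covariate, 35 genes were higher and 86 lower. The share did not overlap between the groups, at 0.286 to 0.590% in control and 0.663 to 0.811% in obese libraries. Share and diet moved together, so a call lost or kept in that fit cannot tell them apart. In that fit no pathway list had more than 2 called members, and 13 of the 43 list medians lay on the other side of the median of all genes (0.0122). The genes named below that were still called there are Acot1, Arntl, Bnip3, Cdkl1, Col27a1, Fbxl22, Fbxo31, Fstl4, Gclm, Hist1h1c, Hsd17b11, Mgst1, Myom2, Npas2, Pde4a, Pdk4, Plin2, Pnpla2, Psmc1, Ptp4a1, Scd4, Sqstm1, Steap3 and Tfrc.

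The tissue label was checked against markers. Ventricular myocyte genes summed to 25119.9 to 35784 CPM in control hearts and 20255 to 29805 CPM in obese hearts. Of 10 skeletal muscle markers, 2 (Myh2 and Myh4) stayed under 0.1 CPM in all 8 libraries and 9 under 2 CPM, the exception being Ckm, which heart also expresses. Of 8 lung markers, 4 (Sftpc, Sftpa1, Scgb1a1 and Epcam) stayed under 0.1 CPM and 7 under 2 CPM, the exception being Hopx, which heart also expresses. Markers of atria were high in obese replicate 3 and, less so, in obese replicates 2 and 4: 10 atrial genes summed to 206, 162, 189.8 and 244 CPM in control replicates 1 to 4 and 166, 249.9, 2509 and 377 CPM in obese replicates 1 to 4. The atrial light chain Myl7 stood at 0.0283, 1.58, 2.804 and 5.52 CPM in control replicates 1 to 4 and 0.394, 17.2, 352 and 31.8 CPM in obese replicates 1 to 4. Of the 10 atrial genes, 1, 5, 10 and 8 were above every control library in obese replicates 1 to 4. Conduction system markers summed to 45.3 to 54.9 CPM in control hearts and 50.5 to 311 CPM in obese hearts and mesothelial markers to 6.41 to 11.3 CPM in control hearts and 11.6 to 37.2 CPM in obese hearts. Counts of called genes without obese replicate 3 were 3136 higher and 3445 lower.

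Most of the genes with the largest falls were enzymes and regulators of lipid and mitochondrial metabolism. Pdk4, a kinase that shuts pyruvate dehydrogenase, stood at 2498, 2141, 2495 and 2851 CPM in control replicates 1 to 4 and 252, 224, 494 and 230.4 CPM in obese replicates 1 to 4. Every obese library was far below every control library, and obese replicate 3 was the highest obese value. For Pdk4 the log2 fold change was -3.06 (SE 0.302, edgeR adjusted p = 7.97e-05). In bulk tissue, fewer cells of a type and less RNA per cell cannot be told apart, here and below. Scd4, a stearoyl-CoA desaturase of the heart, fell from 141 ± 36.5 to 7.73 ± 2.74 CPM (log2 fold change -4.19, SE 0.35, edgeR adjusted p = 6.24e-05). Copies of the Scd family are close in sequence, which makes its level uncertain. Angptl4, a secreted inhibitor of lipoprotein lipase, fell from 49.01 ± 5.86 to 6.32 ± 3.92 CPM (log2 fold change -2.95, SE 0.399, edgeR adjusted p = 0.000765). Bnip3, a receptor that marks mitochondria for autophagy, stood at 411, 393, 392 and 549.6 CPM in control replicates 1 to 4 and 65.9, 40.6, 58.9 and 72.9 CPM in obese replicates 1 to 4. For Bnip3 the log2 fold change was -2.87 (SE 0.19, edgeR adjusted p = 5.47e-06), with no obese library above 72.9 CPM and no control library below 392 CPM. Acot1, a cytosolic acyl-CoA thioesterase, stood at 102, 97.3, 109 and 137 CPM in control replicates 1 to 4 and 17.2, 12.4, 17.4 and 20.6 CPM in obese replicates 1 to 4. For Acot1 the log2 fold change was -2.71 (SE 0.21, edgeR adjusted p = 2.15e-05). It shares long stretches with Acot2, and the counting settings are not given. Hist1h1c, a linker histone gene, fell from 152 ± 24.9 to 25.9 ± 4.48 CPM (log2 fold change -2.55, SE 0.16, edgeR adjusted p = 4.86e-06). Cdkl1, a kinase gene, fell from 20.2 ± 4.605 to 4.07 ± 0.363 CPM (log2 fold change -2.31, SE 0.17, edgeR adjusted p = 1.17e-05).

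**Figure D1:**
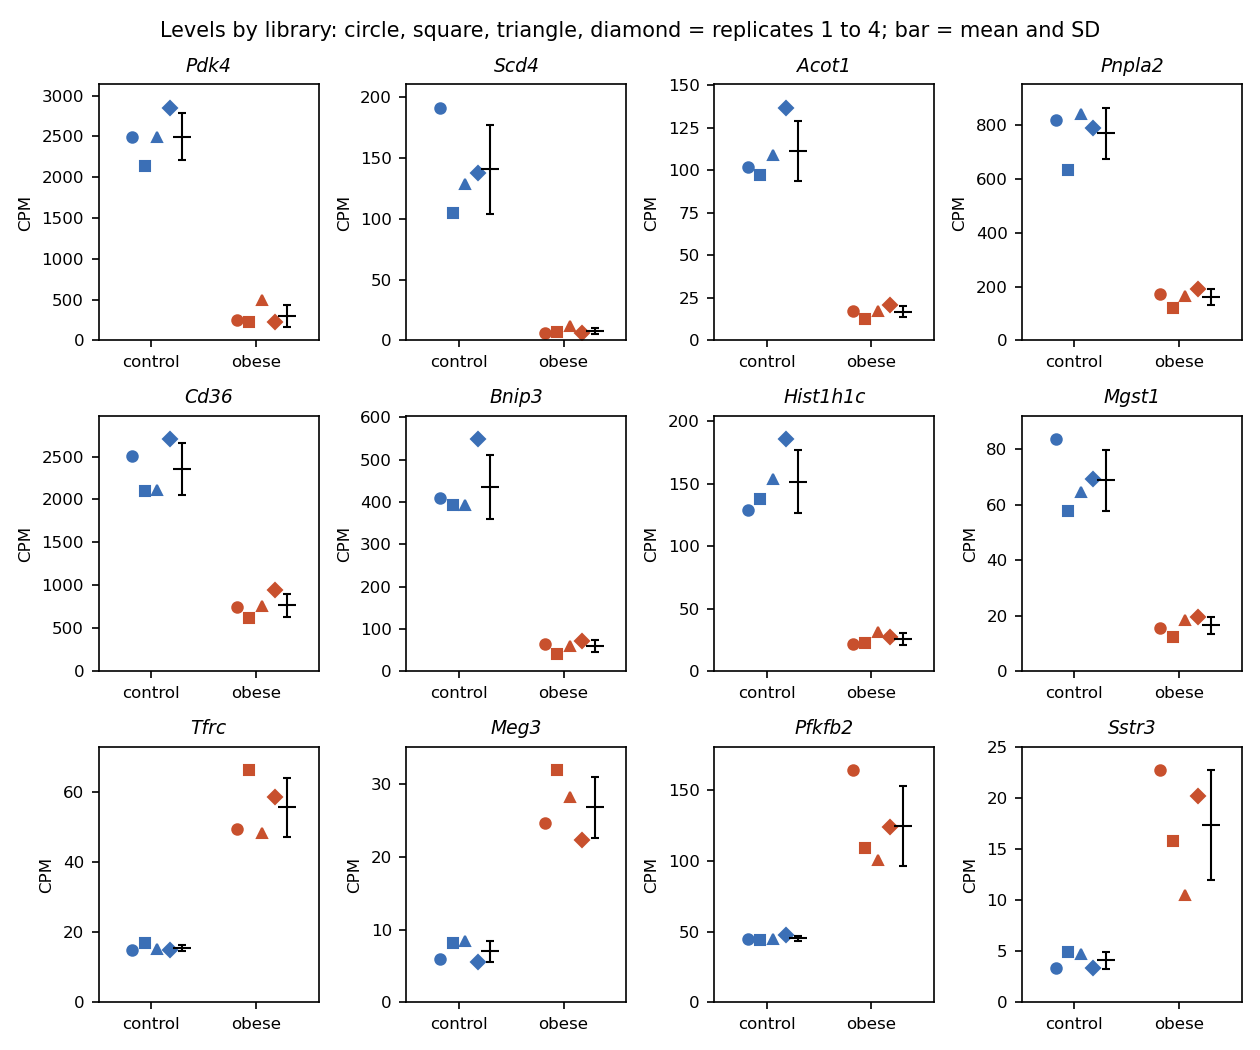
Levels of 12 genes in CPM (vertical axes, each from 0) in 4 control-diet libraries (blue) and 4 obese libraries (red), with mean and SD beside them. In every panel the groups do not overlap. Pdk4, Scd4, Acot1, Pnpla2, Cd36, Bnip3, Hist1h1c and Mgst1 are lower in obese hearts and Tfrc, Meg3, Pfkfb2 and Sstr3 higher.

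Among the genes with the smallest p were Gclm, Hsd17b11, Tfrc, Ptp4a1, Pnpla2, Mgst1 and Fstl4. Of these, all but Tfrc fell. Hsd17b11, a lipid droplet dehydrogenase, fell from 102.9 ± 10.3 to 25.9 ± 3.49 CPM (log2 fold change -1.99, SE 0.13, edgeR adjusted p = 4.86e-06). Ptp4a1, a protein phosphatase, fell from 268 ± 26.98 to 68.8 ± 11.8 CPM (log2 fold change -1.96, SE 0.14, edgeR adjusted p = 1.08e-05). Mgst1, a microsomal glutathione transferase, fell from 68.8 ± 11.02 to 16.5 ± 3.17 CPM (log2 fold change -2.06, SE 0.16, edgeR adjusted p = 1.33e-05). Fstl4, a follistatin-like gene, fell from 26.3 ± 4.94 to 6.84 ± 1.05 CPM (log2 fold change -1.94, SE 0.15, edgeR adjusted p = 1.43e-05).

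Among the largest rises by the same rule were Cntn2, Sstr3, Pkhd1l1, the noncoding Meg3, and 3 RNAs of the mitochondrial chromosome. Sstr3, a somatostatin receptor, stood at 3.38, 4.95, 4.73 and 3.42 CPM in control replicates 1 to 4 and 22.8, 15.8, 10.5 and 20.2 CPM in obese replicates 1 to 4. For Sstr3 the log2 fold change was 2.07 (SE 0.24, edgeR adjusted p = 0.000227). Its obese values were spread more widely than the control values and obese replicate 3 was the lowest obese library. Cntn2, a cell adhesion gene which also marks conduction cells, stood at 0.509, 0.8604, 3.33 and 2.09 CPM in control replicates 1 to 4 and 3.34, 42.2, 91.8 and 25.9 CPM in obese replicates 1 to 4. For Cntn2 the log2 fold change was 4.57 (SE 1.12, edgeR adjusted p = 0.0168). Its obese values were widely spread, with the highest in the replicate with the most atrial markers, and without that replicate the log2 fold change was 3.796 (edgeR adjusted p = 0.0319). The mitochondrial ribosomal RNA mt-Rnr1 was 49.5 ± 20.4 and 319.9 ± 289 CPM in control and obese hearts (log2 fold change 2.69, SE 0.87, edgeR adjusted p = 0.0456). The transfer RNAs mt-Td and mt-Tn were at log2 2.67 and log2 2.15. By contrast with mt-Rnr1, all 13 messenger RNAs of the same chromosome had a mean of 1000 CPM or more. The part of library preparation in the levels of these 3 RNAs (mt-Rnr1, mt-Td and mt-Tn) was not tested. Meg3, a noncoding RNA of an imprinted locus, rose from 7.03 ± 1.45 to 26.8 ± 4.23 CPM (log2 fold change 1.93, SE 0.18, edgeR adjusted p = 4.69e-05). Pkhd1l1, a fibrocystin-like gene, went from 5.55 ± 2.01 to 24.9 ± 20.7 CPM (log2 fold change 2.16, SE 0.698, edgeR adjusted p = 0.0451). mt-Rnr1 lost its call without control replicates 1, 2, 3 or 4 or obese replicates 1, 2 or 4 (edgeR adjusted p from 0.05402 to 0.119, log2 fold change 1.84 without obese replicate 2). mt-Td lost its call without control replicates 1, 3 or 4 or obese replicates 1 or 2 (edgeR adjusted p from 0.0542 to 0.0844, log2 fold change 1.73 without obese replicate 2). mt-Tn lost its call without control replicates 1, 2, 3 or 4, cocktail replicate 3 or obese replicates 1 or 2 (edgeR adjusted p from 0.0532 to 0.102, log2 fold change 1.31 without obese replicate 2). Pkhd1l1 lost its call without control replicates 1, 2, 3 or 4, cocktail replicates 2 or 3 or obese replicates 2 or 3 (edgeR adjusted p from 0.0552 to 0.112, log2 fold change 1.49 without obese replicate 3).

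Carbon entry from pyruvate was followed through 14 genes of the mitochondrial pyruvate carrier, the pyruvate dehydrogenase complex, its kinases and its phosphatases. Of these, 0 rose and 11 fell, or 78.6% (median log2 fold change -0.68). Genes for kinases and for the enzyme they inhibit fell together. Pdk2 fell from 431 ± 55.9 to 208 ± 46.7 CPM (log2 fold change -1.05, SE 0.17, edgeR adjusted p = 0.00101). Pdk1 fell from 206 ± 24.2 to 109.9 ± 19.7 CPM (log2 fold change -0.91, SE 0.14, edgeR adjusted p = 0.000757). Pdk3, the least abundant kinase per kilobase of exon, was at log2 0.26 and not called. Among the subunits, Pdha1 was at log2 -0.85, Dld log2 -0.78, Pdhx log2 -0.66, Pdhb log2 -0.58 and Dlat log2 -0.53, all called. The phosphatase regulator Pdpr fell from 143 ± 17.3 to 88.3 ± 15.2 CPM (log2 fold change -0.696, SE 0.14, edgeR adjusted p = 0.00286). The carrier subunit Mpc1 was at log2 -0.76, also called. Levels per kilobase of exon allow genes to be compared within a library. Shares and ratios of such levels within a library do not depend on the scaling between libraries, though the levels themselves do. On that scale, Pdk4 made up 81.3% ± 1.299 in control hearts and 50.2% ± 11.4 in obese hearts of the summed level of Pdk1 to Pdk4, with no overlap between groups and obese replicate 3 highest among the obese at 65.8%. Pdk4 was thus the most abundant kinase in control hearts, at 711 CPM per kilobase against 136 for Pdk2, and stood beside Pdk2 in obese hearts, at 85.5 against 65.8. Dlat lost its call without control replicates 1, 3 or 4 or obese replicates 1, 2 or 3 (edgeR adjusted p from 0.0584 to 0.0762).

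Genes of fatty acid uptake and activation were lower along most of the route. Of 27 genes from lipoprotein lipase to the carnitine shuttle, 2 rose and 20 fell, or 7.4% and 74.1% (median log2 fold change -0.86). Cd36, the main fatty acid translocase of the heart, stood at 2510.3, 2099, 2113 and 2706 CPM in control replicates 1 to 4 and 744, 621, 759 and 949 CPM in obese replicates 1 to 4. For Cd36 the log2 fold change was -1.62 (SE 0.17, edgeR adjusted p = 8.91e-05), with a wide gap between the lowest control and the highest obese library. Lpl, which releases fatty acids from lipoproteins, was at log2 -1.36, the cytosolic carrier Fabp3 log2 -1.21, the VLDL receptor Vldlr log2 -1.21, the acyl-CoA synthetase Acsl1 log2 -1.06 and the carnitine carrier Slc25a20 log2 -1.05, all called lower with no overlap. The muscle carnitine palmitoyltransferase Cpt1b was at log2 -0.73 and the liver form Cpt1a log2 -0.83, both called. Per kilobase, Cpt1a made up 5.66% ± 1.02 in control hearts and 5.41% ± 1.76 in obese hearts of the pair, with overlapping groups. Acot2, a mitochondrial thioesterase, fell from 293 ± 69.5 to 64.2 ± 14.7 CPM (log2 fold change -2.19, SE 0.21, edgeR adjusted p = 5.74e-05). Both enzymes that set malonyl-CoA, the brake on Cpt1, fell: Mlycd, which removes it, had log2 -1.53, and Acacb, which makes it, had log2 -0.62. The 2 genes that rose were Lmf1 and Acsl6. Lmf1, a chaperone of lipase folding, rose from 15.7 ± 1.44 to 28.7 ± 3.24 CPM (log2 fold change 0.87, SE 0.12, edgeR adjusted p = 0.000445). Acsl6, a synthetase best known from brain, rose from 7.28 ± 1.05 to 13.1 ± 4.25 CPM (log2 fold change 0.85, SE 0.21, edgeR adjusted p = 0.00879), with groups that overlapped.

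Most genes for enzymes of mitochondrial beta-oxidation itself fell. Of 15 enzymes and electron carriers, 0 rose and 14 fell, or 93.3% (median log2 fold change -0.93), and the exception, the short-chain dehydrogenase Acads, was at log2 -0.49 (edgeR adjusted p = 0.06799). Acadl, a long-chain dehydrogenase, stood at 723, 514, 688 and 732 CPM in control replicates 1 to 4 and 344, 258, 297 and 394 CPM in obese replicates 1 to 4. For Acadl the log2 fold change was -1.04 (SE 0.16, edgeR adjusted p = 0.000841). Etfdh, which hands electrons from these dehydrogenases to ubiquinone, fell from 417 ± 88.1 to 185 ± 43.1 CPM (log2 fold change -1.17, SE 0.203, edgeR adjusted p = 0.00143). Eci1 and Eci2, isomerases for unsaturated chains, were at log2 -1.14 and log2 -0.93, and the trifunctional protein subunits Hadha and Hadhb log2 -1.06 and log2 -1.16. In the peroxisome, where very long chains are shortened, 1 rose and 19 fell, or 3.3% and 63.3% of 30 genes (median log2 fold change -0.497). Enzymes of its matrix had some of the lowest values. Ehhadh, the bifunctional enzyme, fell from 21.9 ± 1.38 to 7.38 ± 0.978 CPM (log2 fold change -1.57, SE 0.23, edgeR adjusted p = 0.000578). Catalase (Cat), which removes the peroxide made there, fell from 402 ± 59.9 to 132 ± 22.6 CPM (log2 fold change -1.61, SE 0.16, edgeR adjusted p = 6.64e-05). Of the import machinery Pex3, Pex16 and Pex19 were at log2 -0.61, log2 -0.61 and log2 -0.58, all called. Pex5, Pex10 and Pex14 lay between log2 -0.25 and log2 0.099 and were not called. Acads was called without control replicate 2 or obese replicate 4 (edgeR adjusted p from 0.0169 to 0.0357). Pex5 was called without control replicate 2 (edgeR adjusted p = 0.0276).

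Lipid droplet genes went both ways. Of 18 genes, 2 rose and 9 fell, or 11.1% and 50% (median log2 fold change -0.53). Pnpla2, adipose triglyceride lipase, which starts the breakdown of stored fat in muscle too, stood at 819, 632, 839.97 and 790.03 CPM in control replicates 1 to 4 and 173, 121, 167 and 190.3 CPM in obese replicates 1 to 4. For Pnpla2 the log2 fold change was -2.24 (SE 0.17, edgeR adjusted p = 1.17e-05). The droplet coat gene Plin2 fell from 121 ± 17.4 to 44.98 ± 4.92 CPM (log2 fold change -1.43, SE 0.15, edgeR adjusted p = 8.01e-05), and its relative Plin5 fell too (log2 -0.98). Cidea, a droplet fusion gene, fell from 13.9 ± 3.07 to 5.14 ± 0.709 CPM (log2 fold change -1.43, SE 0.19, edgeR adjusted p = 0.000375). The 2 rises, Plin1 and Cidec, are genes of white adipocytes and lay near the detection limit. Both passed the low-count filter only with the cocktail libraries present: with the 8 libraries alone, 16 lipid droplet genes were tested, of which 0 rose and 9 fell. Plin1 stood at 0.0566, 0.115, 0.101 and 0.156 CPM in control replicates 1 to 4 and 0.0856, 2.58, 2.56 and 0.583 CPM in obese replicates 1 to 4. For Plin1 the log2 fold change was 3.75 (SE 1.06, edgeR adjusted p = 0.0229). Cidec stood at 0.0425, 0.1004, 0.123 and 0 CPM in control replicates 1 to 4 and 0.0856, 1.48, 2.35 and 0.364 CPM in obese replicates 1 to 4. For Cidec the log2 fold change was 3.91 (SE 1.196, edgeR adjusted p = 0.0326), with overlapping groups in both. Over 10 adipocyte markers, 4 rose and 2 fell, or 44.4% and 22.2% of 9 tested (median log2 fold change 3.75), and 4 of the 10 were tested with the 8 libraries alone. Their summed level was 127 to 149.95 CPM in control hearts and 68.8 to 86.9 CPM in obese hearts, most of it from Lipe, at 102 to 118 CPM in control and 46.9 to 68.3 CPM in obese hearts. Of Adipoq, Lep, Retn and Cfd, markers of white adipocytes, none was above 0.234 CPM in a control library, and all 4 were highest in obese replicates 2 and 3, as were Plin1 and Cidec. Adipoq, for example, stood at 0, 0, 0 and 0.0624 CPM in control replicates 1 to 4 and 0.137, 1.07, 1.29 and 0.175 CPM in obese replicates 1 to 4. Ucp1 was under 0.1 CPM in all 8 libraries, and the part of adipocytes in these values was not tested. Plin1 lost its call without control replicates 1, 2, 3 or 4 or obese replicate 2 (edgeR adjusted p from 0.0507 to 0.0692). Cidec lost its call without control replicates 1, 2, 3 or 4 or obese replicates 2 or 3 (edgeR adjusted p from 0.0569 to 0.0883, log2 fold change 3.18 without obese replicate 3).

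Of 7 ketone genes, 0 rose and 4 fell, or 57.1% (median log2 fold change -0.45, or 0.06 with the intronic share as a covariate). The enzymes that burn ketone bodies, Oxct1 at 560.5 ± 124 and 420.1 ± 88.95 CPM in control and obese hearts and Bdh1 at 52.5 ± 13.8 and 47.5 ± 15.2 CPM in control and obese hearts, were not called (edgeR adjusted p = 0.1199 and 0.668). Among the falls were Acat1 (log2 -0.89) and the monocarboxylate carrier Slc16a1 (log2 -0.93). Of 21 genes of branched-chain amino acid breakdown, 0 rose and 18 fell, or 85.7% (median log2 fold change -0.697). Aldh6a1, the last enzyme of the valine branch, stood at 283, 232, 255 and 305 CPM in control replicates 1 to 4 and 121, 80.4, 125 and 136 CPM in obese replicates 1 to 4. For Aldh6a1 the log2 fold change was -1.22 (SE 0.16, edgeR adjusted p = 0.000399). Acadsb, a branched-chain acyl-CoA dehydrogenase, fell from 117 ± 17.1 to 52.2 ± 9.82 CPM (log2 fold change -1.17, SE 0.15, edgeR adjusted p = 0.000368). Bckdhb, a subunit of the committed dehydrogenase, fell from 37.7 ± 4.097 to 18.9 ± 2.05 CPM (log2 fold change -0.995, SE 0.14, edgeR adjusted p = 0.000413). The kinase that turns that dehydrogenase off, Bckdk, was at log2 -0.66, and the phosphatase that turns it on, Ppm1k, log2 -0.91, both called. The transaminases Bcat2 and Bcat1 were at log2 -0.44 and log2 0.96, and the dehydrogenase Acad8 was at log2 -0.16, and none of these 3 was called. Without obese replicate 3, Bcat1 was at log2 0.18 (edgeR adjusted p = 0.823). Oxct1 was called without control replicate 2 or obese replicate 4 (edgeR adjusted p from 0.0285 to 0.0421). Bcat2 was called without control replicate 2, cocktail replicates 1 or 3 or obese replicate 4 (edgeR adjusted p from 0.0316 to 0.0389).

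Of 18 citric acid cycle genes, 0 rose and 16 fell, or 88.9% (median log2 fold change -0.74). Sucla2, the ATP-forming succinyl-CoA ligase subunit, fell from 223 ± 40.2 to 112 ± 26.2 CPM (log2 fold change -0.99, SE 0.18, edgeR adjusted p = 0.00187). Idh3b, of the regulated isocitrate dehydrogenase, fell from 287 ± 55.7 to 153 ± 31.8 CPM (log2 fold change -0.91, SE 0.18, edgeR adjusted p = 0.00265). Ogdh and Dlst, subunits of the oxoglutarate dehydrogenase complex, were at log2 -0.47 and log2 -0.33 and were not called. The summed level of the 18 genes was 11596, 8458, 10596 and 11806 CPM in control replicates 1 to 4 and 7159, 5139, 5642 and 8389 CPM in obese replicates 1 to 4, with control replicate 2 lowest among the controls and obese replicate 2 lowest of all. Ogdh was called without control replicate 2 or obese replicate 4 (edgeR adjusted p from 0.0189 to 0.0253). Dlst was called without control replicate 2 or obese replicate 4 (edgeR adjusted p from 0.03102 to 0.0338).

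Genes of the respiratory chain were lower in all complexes examined. Of 37 nuclear subunits of complex I, 0 rose and 32 fell, or 86.5% (median log2 fold change -0.72). Of 9 subunits of complex III, 0 rose and 6 fell, or 66.7% (median log2 fold change -0.704, or 0.04 with the intronic share as a covariate). Of 16 of complex IV, 0 rose and 15 fell, or 93.8% (median log2 fold change -0.73, or 0.09 with the intronic share as a covariate). Of 18 of ATP synthase and its inhibitor, 0 rose and 15 fell, or 83.3% (median log2 fold change -0.66). Ndufa9, in the arm of complex I that joins it to the membrane, stood at 198, 144, 181 and 218 CPM in control replicates 1 to 4 and 98.5, 76.8, 81.1 and 132 CPM in obese replicates 1 to 4. For Ndufa9 the log2 fold change was -0.93 (SE 0.18, edgeR adjusted p = 0.00257). Ndufa7 and Ndufb6 had the lowest values of complex I, log2 -1.197 and log2 -1.12, and Ndufb2 had the highest, log2 0.05, and was not called. Uqcrb of complex III fell from 207 ± 48.8 to 89.9 ± 19.1 CPM (log2 fold change -1.21, SE 0.19, edgeR adjusted p = 0.000887). Cox6b1 of complex IV fell from 294 ± 75.9 to 141 ± 34.95 CPM (log2 fold change -1.06, SE 0.21, edgeR adjusted p = 0.00288). Atp5c1, the central stalk of ATP synthase, fell from 386 ± 82.3 to 181 ± 41.8 CPM (log2 fold change -1.09, SE 0.19, edgeR adjusted p = 0.001401). Atpif1, which blocks ATP synthase from running backwards, fell with it, from 59.1 ± 9.37 to 28.002 ± 4.65 CPM (log2 fold change -1.08, SE 0.15, edgeR adjusted p = 0.000522). Of these 80 nuclear subunits, 68 were called lower, and in 31 of the 68 the groups overlapped. In all 31, control replicate 2, the control with the highest intronic share, was the lowest control library, and the other 3 controls lay above every obese library. With the intronic share as a covariate none of the 80 was called lower or higher.

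Subunits with a heart form and a general form were compared per kilobase, within each library. For complex IV subunit 7a, the general form Cox7a2 fell from 147 ± 41.8 to 52.5 ± 13.1 CPM (log2 fold change -1.49, SE 0.22, edgeR adjusted p = 0.000733). The heart form Cox7a1 fell from 147 ± 43.4 to 75.9 ± 15.3 CPM (log2 fold change -0.95, SE 0.22, edgeR adjusted p = 0.00628). Cox7a2 made up 36.4% ± 2.23 in control hearts and 28.03% ± 3.97 in obese hearts of the pair, with obese replicate 3 inside the control range. For subunit 6a the general form Cox6a1 made up 1.43% ± 0.129 in control hearts and 1.49% ± 0.219 in obese hearts, and for subunit 8 the general form Cox8a made up 15.99% ± 0.792 in control hearts and 17.5% ± 2.59 in obese hearts, both with overlapping groups. Cox6b2, a subunit best known from testis, fell from 1.95 ± 0.631 to 0.526 ± 0.0369 CPM (log2 fold change -1.89, SE 0.295, edgeR adjusted p = 0.000809).

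All 13 messenger RNAs of the mitochondrial chromosome fell (median log2 fold change -0.797), with no overlap in any. The catalytic subunit of complex IV, mt-Co1, stood at 134029, 102649, 110197 and 151674 CPM in control replicates 1 to 4 and 67125, 56490, 55952 and 75049.5 CPM in obese replicates 1 to 4. For mt-Co1 the log2 fold change was -0.97 (SE 0.195, edgeR adjusted p = 0.00325). The complex I gene mt-Nd5 fell from 48489.7 ± 8351 to 23594 ± 3649 CPM (log2 fold change -1.04, SE 0.19, edgeR adjusted p = 0.00191). The smallest fall was in mt-Atp6, log2 -0.53. Nuclear copies of mitochondrial sequence may share reads with these genes. Their summed level was 363558 ± 64362 CPM in control hearts and 205295 ± 27193 CPM in obese hearts. mt-Atp6 lost its call without control replicates 1 or 4 or obese replicates 1, 2 or 3 (edgeR adjusted p from 0.0572 to 0.0875).

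Genes of the machinery that builds mitochondria were lower in part. Of 78 mitochondrial ribosomal proteins, 0 rose and 38 fell, or 48.7% (median log2 fold change -0.45, or 0.13 with the intronic share as a covariate), 23 of 49 in the large and 15 of 29 in the small subunit. Mrpl30 fell from 57.4 ± 11.9 to 26.9 ± 6.36 CPM (log2 fold change -1.09, SE 0.18, edgeR adjusted p = 0.00103). Mrps15 fell from 24.7 ± 3.94 to 13.6 ± 1.26 CPM (log2 fold change -0.86, SE 0.13, edgeR adjusted p = 0.000713). Without control replicate 2 the number fallen was 60. Of 37 import genes tested of 39, 0 rose and 27 fell, or 73% (median log2 fold change -0.55). Tomm20, an outer-membrane receptor, fell from 55.2 ± 7.73 to 28.1 ± 3.79 CPM (log2 fold change -0.97, SE 0.12, edgeR adjusted p = 0.0002896). Timm23, the inner-membrane channel, fell from 72.4 ± 14.5 to 36.6 ± 7.84 CPM (log2 fold change -0.99, SE 0.17, edgeR adjusted p = 0.00134). Of 21 genes of fusion, fission and cristae, 0 rose and 16 fell, or 76.2% (median log2 fold change -0.55). The fusion genes Mfn1, Mfn2 and Opa1 were at log2 -0.55, log2 -0.69 and log2 -0.58, all called. The crista gene Chchd3 fell from 154 ± 23.3 to 82.97 ± 14.3 CPM (log2 fold change -0.89, SE 0.15, edgeR adjusted p = 0.00117). The fission genes Dnm1l and Mff were at log2 -0.097 and log2 -0.26 and not called. Of 13 ubiquinone genes, 1 rose and 5 fell, or 7.7% and 38.5% (median log2 fold change -0.38, or 0.04 with library totals alone and 0.12 with the intronic share as a covariate). Coq3 fell from 29.96 ± 4.99 to 15.5 ± 2.66 CPM (log2 fold change -0.95, SE 0.16, edgeR adjusted p = 0.00106). Pdss1, which makes the side chain, rose from 10.1 ± 0.691 to 13.3 ± 0.9399 CPM (log2 fold change 0.402, SE 0.11, edgeR adjusted p = 0.01299). Mff was called without obese replicate 4 (edgeR adjusted p = 0.0452).

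Solute carriers of the inner membrane went both ways. Of 46 tested of 50, 5 rose and 16 fell, or 10.9% and 34.8% (median log2 fold change -0.12, or 0.29 with library totals alone). Among the falls, the adenine nucleotide carrier Slc25a4 was at log2 -0.96, the phosphate carrier Slc25a3 log2 -0.78, and the aspartate-glutamate carriers Slc25a12 and Slc25a13 log2 -0.61 and log2 -0.66. Slc25a34, an orphan carrier, fell from 219.6 ± 26.9 to 89.8 ± 16.4 CPM (log2 fold change -1.29, SE 0.19, edgeR adjusted p = 0.000681). Of the 5 rises, Slc25a37, mitoferrin, which brings iron into mitochondria, went from 23.3 ± 1.98 to 42.2 ± 4.102 CPM (log2 fold change 0.86, SE 0.11, edgeR adjusted p = 0.0003604). Among the others were the calcium-regulated ATP carrier Slc25a25 (log2 1.07), Slc25a45 (log2 0.54) and Slc25a47 (log2 0.54). The uncoupling protein Ucp3 fell from 117 ± 22.8 to 43.2 ± 7.87 CPM (log2 fold change -1.44, SE 0.27, edgeR adjusted p = 0.00309). Ucp2 was at log2 -0.35 and not called. Per kilobase, Ucp3 made up 68.6% ± 3.12 in control hearts and 52.5% ± 8.53 in obese hearts of the pair, without overlap. Slc25a25 lost its call without control replicate 4 (edgeR adjusted p = 0.0581). Slc25a45 lost its call without control replicates 2, 3 or 4, cocktail replicate 3 or obese replicates 1, 2 or 3 (edgeR adjusted p from 0.0582 to 0.1099). Slc25a47 lost its call without control replicates 1, 3 or 4, cocktail replicate 3 or obese replicates 1 or 4 (edgeR adjusted p from 0.0502 to 0.1204). Ucp2 was called without obese replicate 3 (edgeR adjusted p = 0.0461).

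Genes of glucose use went both ways. Of 23 genes of glucose uptake and glycolysis, 2 rose and 9 fell, or 8.7% and 39.1% (median log2 fold change -0.22, or 0.202 with library totals alone and 0.096 with the intronic share as a covariate). The insulin-responsive transporter Slc2a4 stood at 158 ± 23.7 and 135 ± 23.5 CPM in control and obese hearts (edgeR adjusted p = 0.307). The muscle hexokinase Hk2 stood at 193 ± 24.8 and 249.6 ± 55.3 CPM in control and obese hearts (edgeR adjusted p = 0.112). Neither was called, though Hk2 was called higher with upper-quartile scaling, library totals, the 1 CPM filter or protein-coding genes only. The basal transporter Slc2a1 fell from 18.3 ± 0.478 to 11.5 ± 1.999 CPM (log2 fold change -0.68, SE 0.13, edgeR adjusted p = 0.00205). Pfkfb2, the heart enzyme that makes fructose 2,6-bisphosphate, the activator of phosphofructokinase, stood at 44.8, 44.2, 44.5 and 48.01 CPM in control replicates 1 to 4 and 165, 109, 101 and 124 CPM in obese replicates 1 to 4. For Pfkfb2 the log2 fold change was 1.46 (SE 0.16, edgeR adjusted p = 0.0001302), with the controls close to one another and every obese library well above them. Per kilobase, its share of Pfkfb1 to Pfkfb3 was 30.004% ± 5.03 in control hearts and 62.1% ± 7.16 in obese hearts. It did not overlap between groups. The liver phosphofructokinase Pfkl was 51.6 ± 5.02 and 74.96 ± 18.4 CPM in control and obese hearts (log2 fold change 0.54, SE 0.16, edgeR adjusted p = 0.0221). Tpi1 fell from 243 ± 44.3 to 146 ± 25.3 CPM (log2 fold change -0.73, SE 0.16, edgeR adjusted p = 0.00501) and Gpi1 (log2 -0.55). Ldhb, the heart lactate dehydrogenase, was at log2 -0.86 and called, and Ldha log2 -0.11 and not. Per kilobase, Ldhb made up 86.2% ± 0.827 in control hearts and 78.6% ± 1.97 in obese hearts of the pair, without overlap. Pfkl lost its call without control replicate 2 or obese replicates 1 or 4 (edgeR adjusted p from 0.05402 to 0.0697).

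Of 20 glycogen genes, 3 rose and 10 fell, or 15% and 50% (median log2 fold change -0.48). Genes for enzymes of synthesis and of breakdown fell. Ugp2, which makes UDP-glucose, fell from 125 ± 26.4 to 73.9 ± 8.86 CPM (log2 fold change -0.76, SE 0.14, edgeR adjusted p = 0.00204). The phosphorylases Pygb (log2 -0.76) and Pygm (log2 -0.53) fell. Laforin (Epm2a) fell from 27.6 ± 3.16 to 16.5 ± 3.097 CPM (log2 fold change -0.74, SE 0.14, edgeR adjusted p = 0.00277). The targeting subunits of protein phosphatase 1 did not move together. Ppp1r3d fell from 23.4 ± 2.93 to 12.1 ± 1.201 CPM (log2 fold change -0.95, SE 0.13, edgeR adjusted p = 0.000392), and Ppp1r3a fell too (log2 -0.602). Ppp1r3b rose from 19.9 ± 0.656 to 29.5 ± 5.94 CPM (log2 fold change 0.57, SE 0.14, edgeR adjusted p = 0.00818) and Ppp1r3c from 40.7 ± 6.59 to 56.3 ± 11.5 CPM (log2 fold change 0.47, SE 0.15, edgeR adjusted p = 0.0319), the last with overlap. The third rise was Pgm2 (log2 0.51). Pygm lost its call without control replicates 1 or 4 or obese replicates 2 or 3 (edgeR adjusted p from 0.0694 to 0.0741). Ppp1r3c lost its call without control replicates 1, 2 or 3 or obese replicates 1 or 4 (edgeR adjusted p from 0.06105 to 0.109). Pgm2 lost its call without control replicates 1 or 4 or obese replicates 1 or 3 (edgeR adjusted p from 0.05095 to 0.0796).

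Most regulators of these pathways were not called. Of 28 genes for nuclear receptors, coactivators, corepressors and AMP kinase subunits, 1 rose and 10 fell, or 3.6% and 35.7% (median log2 fold change -0.13, or 0.28 with library totals alone and 0.02 with the intronic share as a covariate). Ppara, the fatty acid receptor, stood at 47.96, 45.3, 45.1 and 44.003 CPM in control replicates 1 to 4 and 50.3, 25.97, 33.5 and 56.2 CPM in obese replicates 1 to 4 (edgeR adjusted p = 0.618), with the obese values on both sides of the controls. Ppargc1a, the coactivator of mitochondrial genes, stood at 177, 148, 163 and 186 CPM in control replicates 1 to 4 and 328, 88.7, 156 and 231 CPM in obese replicates 1 to 4 (edgeR adjusted p = 0.542). Esrra, the estrogen-related receptor alpha, stood at 54.3 ± 5.38 and 50.2 ± 8.21 CPM in control and obese hearts (edgeR adjusted p = 0.513). Gabpa, a factor of nuclear respiratory genes, fell from 45.5 ± 1.96 to 32.02 ± 2.102 CPM (log2 fold change -0.51, SE 0.08, edgeR adjusted p = 0.001102). The AMP kinase subunit Prkaa2 fell from 241 ± 46.8 to 149 ± 26.04 CPM (log2 fold change -0.696, SE 0.16, edgeR adjusted p = 0.00669). The corepressor Ncor1 fell from 269 ± 14.9 to 206 ± 13.2 CPM (log2 fold change -0.38, SE 0.098, edgeR adjusted p = 0.0113).

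**Figure D2:**
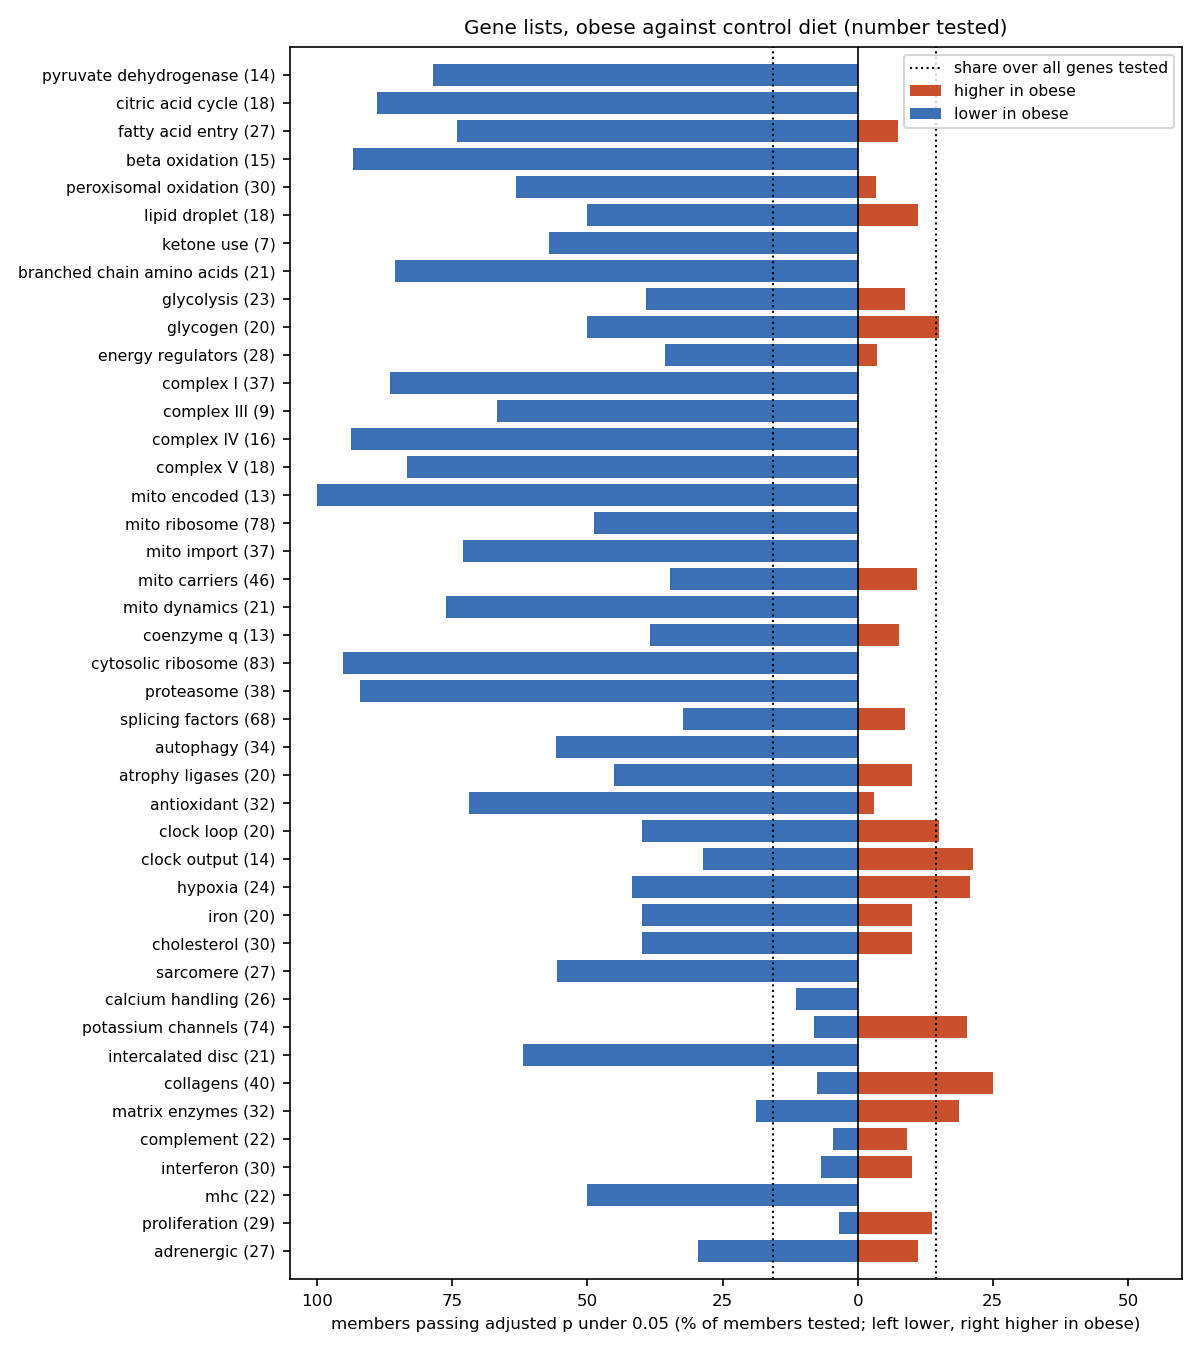
Share of the tested members of each of 43 gene lists that were called lower (blue, to the left of 0) or higher (red, to the right) in obese hearts, in percent, with the number tested in parentheses. Dotted lines mark the shares over all genes, 15.7% lower and 14.4% higher, and the longest blue bars are those of the mitochondrially encoded, cytosolic ribosome, complex IV, beta-oxidation and proteasome lists.

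The genes of the ribosome and the proteasome, which make and break down proteins, fell almost without exception. Of 83 cytosolic ribosomal protein genes tested of 85, 0 rose and 79 fell, or 95.2% (median log2 fold change -0.94), all 33 of the small subunit and 46 of 50 of the large. Groups did not overlap in 79. Rps27 stood at 119, 88.5, 108 and 162 CPM in control replicates 1 to 4 and 38.5, 38.9, 52.2 and 42.03 CPM in obese replicates 1 to 4. For Rps27 the log2 fold change was -1.48 (SE 0.18, edgeR adjusted p = 0.000245). Rps13 and Fau were at log2 -1.36 and log2 -1.03. The 4 that were not called were Rpl3 (log2 -0.51), its muscle paralog Rpl3l (log2 -0.48), Rplp1 (log2 -0.42) and Rpl7l1 (log2 -0.28). Ribosomal protein genes have many processed copies, and how reads shared with them were counted is not given. The summed level was 8816, 6976, 8361 and 11134 CPM in control replicates 1 to 4 and 4380.4, 4229.97, 5111 and 4723 CPM in obese replicates 1 to 4. The obese sums lay close together and the controls were spread more widely, with control replicate 2 lowest and control replicate 4 highest. Leaving out any 1 library left between 77 and 82 called lower, but with the intronic share as a covariate 0 were (median log2 fold change -0.45). Of 38 proteasome genes tested of 39, 0 rose and 35 fell, or 92.1% (median log2 fold change -0.63), and 1 fell with the intronic share as a covariate. In the 20S core 7 of 8 alpha and all 10 beta subunits fell, and in the 19S cap all 6 ATPase and 12 of 14 other subunits. Psmc1, a cap ATPase, stood at 88.5, 70.8, 76.6 and 80.1 CPM in control replicates 1 to 4 and 34.5, 33.6, 37.3 and 39.9 CPM in obese replicates 1 to 4. For Psmc1 the log2 fold change was -1.12 (SE 0.105, edgeR adjusted p = 4.69e-05). Psma7, of the core, fell from 50.4 ± 6.01 to 24.5 ± 3.05 CPM (log2 fold change -1.04, SE 0.12, edgeR adjusted p = 0.000216). The immune core subunit Psmb8 was at log2 -0.52 and called. The exceptions were the testis subunit Psma8 (log2 -0.36), the deubiquitinase Psmd14 (log2 -0.296) and the chaperone Psmd9 (log2 -0.03). Rpl3 was called without control replicate 2, cocktail replicate 1 or obese replicate 3 (edgeR adjusted p from 0.0111 to 0.0457). Rplp1 was called without control replicate 2 (edgeR adjusted p = 0.0189). Rpl7l1 was called without control replicate 2 (edgeR adjusted p = 0.0145). Psmd14 was called without control replicate 2 (edgeR adjusted p = 0.0453).

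Fallen genes made up a larger share of the protein-coding genes at higher levels. Called lower were 2.4% of 2934 such genes with a mean under 1 CPM over the 8 libraries, 12.0% of 4912 from 1 to 10 CPM, 33.5% of 6757 from 10 to 100 CPM, 51.7% of 985 from 100 to 1000 CPM and 73.2% of the 56 at 1000 CPM or more. The proteasome genes Psmc1 and Psma7, for example, lay between 10 and 100 CPM in both groups. The ribosomal, proteasome and respiratory genes were not sorted by these levels, and the part of level in their counts was not tested. The same holds for the other lists. Shares called lower such as 39.1% of glycolysis, 40% of iron and 50% of glycogen genes exceed the 15.7% of all genes. They lie between the shares of protein-coding genes at 10 to 100 and at 100 to 1000 CPM.

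**Figure D3:**
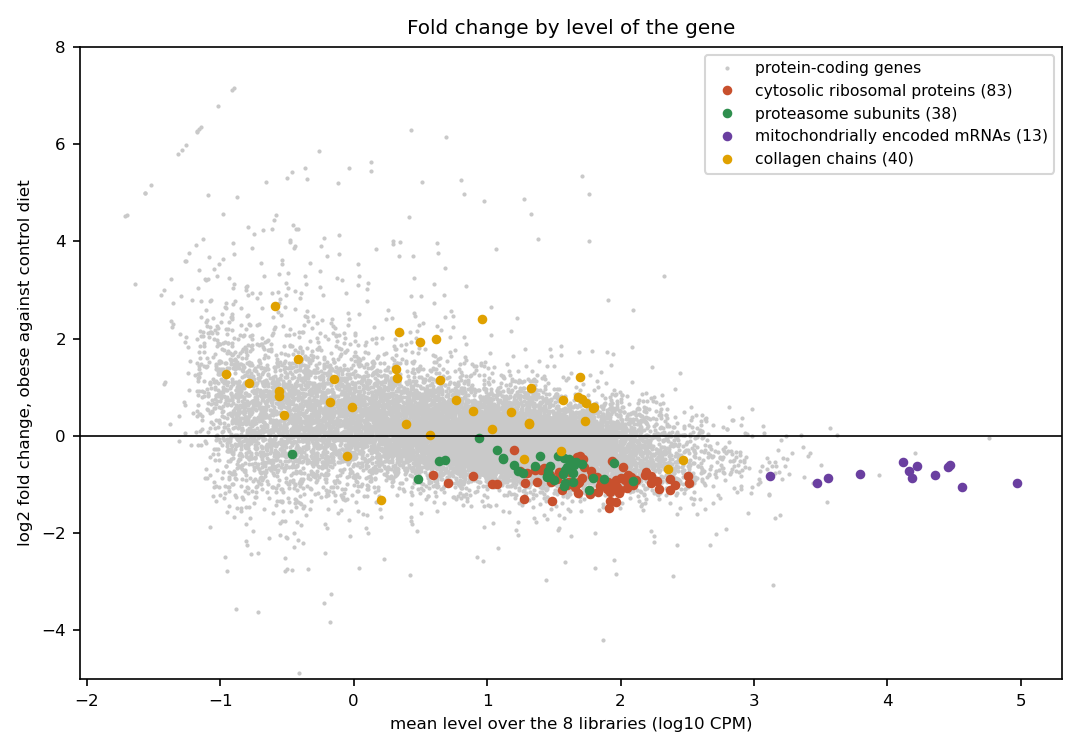
Log2 fold change of obese against control diet (vertical) by the gene's mean level over the 8 libraries in log10 CPM (horizontal) for protein-coding genes (grey) and 4 lists. Ribosomal (83), proteasome (38) and mitochondrially encoded genes (13) lie below 0 at mid to high level, while most collagen chains (40) lie above it at low to mid level.

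Among splicing factors and other RNA-binding proteins, some went up and more went down. Of 68 tested of 69, 6 rose and 22 fell, or 8.8% and 32.4% (median log2 fold change -0.19, or 0.24 with library totals alone). Of 10 serine-arginine rich factors 3 rose and 0 fell: Srsf3 (log2 0.38), Srsf11 (log2 0.36) and Srsf6, the last from 66.7 ± 3.96 to 102 ± 10.3 CPM (log2 fold change 0.62, SE 0.11, edgeR adjusted p = 0.00206). Luc7l3, of the U1 particle, rose from 48.01 ± 6.52 to 71.04 ± 4.22 CPM (log2 fold change 0.57, SE 0.11, edgeR adjusted p = 0.00297). Hnrnph1 rose from 81.9 ± 5.03 to 118 ± 5.51 CPM (log2 fold change 0.52, SE 0.09, edgeR adjusted p = 0.0017003), and Rbm5 rose too (log2 0.46). Of 12 small ribonucleoprotein (Snrp) genes 0 rose, 6 fell and 6 were not called, and among the falls were Snrpg (log2 -0.85), Snrpe (log2 -0.74), Snrpa1 (log2 -0.77) and Snrpd3 (log2 -0.69). The cold-inducible RNA-binding proteins were lower. Cirbp stood at 42.1, 32.9, 47.6 and 38.8 CPM in control replicates 1 to 4 and 11.8, 12.4, 15.8 and 12.3 CPM in obese replicates 1 to 4. For Cirbp the log2 fold change was -1.63 (SE 0.15, edgeR adjusted p = 4.69e-05). Rbm3 fell from 39.4 ± 2.74 to 24.6 ± 2.18 CPM (log2 fold change -0.68, SE 0.11, edgeR adjusted p = 0.00119). Hnrnpk fell from 203 ± 22.03 to 119 ± 4.03 CPM (log2 fold change -0.77, SE 0.11, edgeR adjusted p = 0.0005598). Rbm20, which splices titin, was 304 ± 29.9 and 353 ± 66.8 CPM in control and obese hearts and not called (edgeR adjusted p = 0.251). Srsf11 lost its call without control replicates 1, 3 or 4 or obese replicates 1, 2 or 3 (edgeR adjusted p from 0.0525 to 0.109). Rbm5 lost its call without control replicates 1, 3 or 4, cocktail replicate 3 or obese replicates 1, 2 or 3 (edgeR adjusted p from 0.0586 to 0.129).

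About as many autophagy genes fell as stayed uncalled, with ATG8 and cargo receptor genes among the falls. Of 34 genes, 0 rose and 19 fell, or 55.9% (median log2 fold change -0.41, or 0.01 with library totals alone), and groups did not overlap in 19. The ATG8 proteins that coat the membrane, Map1lc3b, Gabarap, Gabarapl1 and Gabarapl2, were at log2 -1.403, log2 -1.19, log2 -1.03 and log2 -0.73. Map1lc3b stood at 220.4, 180.2, 206 and 233 CPM in control replicates 1 to 4 and 81.1, 62.7, 83.9 and 89.8 CPM in obese replicates 1 to 4. For Map1lc3b the log2 fold change was -1.403 (SE 0.13, edgeR adjusted p = 4.69e-05). The cargo receptor Sqstm1 (p62) stood at 372, 378, 364 and 349 CPM in control replicates 1 to 4 and 166, 144, 150.2 and 186 CPM in obese replicates 1 to 4. For Sqstm1 the log2 fold change was -1.18 (SE 0.12, edgeR adjusted p = 6.63e-05). The receptors Tax1bp1, Optn and Nbr1 were at log2 -0.73, log2 -0.597 and log2 -0.44. The mitophagy kinase Pink1 was at log2 -1.11 and called. Earlier in the pathway, Atg13 (log2 -0.73) and Atg9a (log2 -0.55) were called, while the initiating kinases Ulk1 and Ulk2 and the conjugation enzymes Atg3, Atg5 and Atg7 lay between log2 -0.203 and log2 -0.102 and were not called. Of 20 muscle ubiquitin ligases and their regulators, 2 rose and 9 fell, or 10% and 45% (median log2 fold change -0.299, or 0.11 with library totals alone). Fbxo32 (atrogin-1) fell from 233 ± 36.03 to 151 ± 23.3 CPM (log2 fold change -0.62, SE 0.14, edgeR adjusted p = 0.00631). Fbxo31 fell from 121 ± 18.8 to 57.5 ± 9.84 CPM (log2 fold change -1.07, SE 0.16, edgeR adjusted p = 0.000588). Trim63 (MuRF1) fell from 59.7 ± 5.78 to 44.001 ± 7.16 CPM (log2 fold change -0.44, SE 0.13, edgeR adjusted p = 0.0245). Its paralogs went opposite ways, Trim54 from 127 ± 14.5 to 63.5 ± 13.2 CPM (log2 fold change -1.001, SE 0.16, edgeR adjusted p = 0.000824) and Trim55 (log2 0.42). The other rise was Fbxl22 (log2 0.67), a Z-disc ligase. Trim63 lost its call without control replicates 1 or 4 or obese replicates 2 or 3 (edgeR adjusted p from 0.0551 to 0.0675). Trim55 lost its call without control replicates 2, 3 or 4 or obese replicates 1 or 4 (edgeR adjusted p from 0.0578 to 0.0916). Fbxl22 lost its call without control replicate 3 or obese replicates 1 or 4 (edgeR adjusted p from 0.0522 to 0.0805).

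Antioxidant genes of the glutathione, thioredoxin, peroxiredoxin and dismutase groups were among the falls. Of 32 genes, 1 rose and 23 fell, or 3.1% and 71.9% (median log2 fold change -0.66). Gclm, the regulatory subunit of the enzyme that starts glutathione synthesis, stood at 50.3, 57.2, 50.7 and 56.2 CPM in control replicates 1 to 4 and 12.5, 12.03, 15.5 and 16.03 CPM in obese replicates 1 to 4. For Gclm the log2 fold change was -1.94 (SE 0.11, edgeR adjusted p = 3.35e-06), the smallest p of all genes. Its catalytic partner Gclc was at log2 -0.28. The peroxiredoxins Prdx1, Prdx2, Prdx3, Prdx5 and Prdx6 lay between log2 -1.02 and log2 -0.63, all called, and Prdx4 was at log2 -0.35 and not. Sod1 fell from 132 ± 11.9 to 68.2 ± 6.903 CPM (log2 fold change -0.95, SE 0.11, edgeR adjusted p = 0.000242). Gpx4, Gstm1, Nqo1 and Txnrd1 were at log2 -1.05, log2 -1.39, log2 -1.14 and log2 -0.87. The controlling factor Nfe2l2 (NRF2) and its inhibitor Keap1 were at log2 0.06 and log2 -0.27 and not called. The 1 rise was Osgin1, from 2.02 ± 0.255 to 2.98 ± 0.644 CPM (log2 fold change 0.56, SE 0.18, edgeR adjusted p = 0.0367). The promoter of Gclm is shown because it leads the list and holds the core of an antioxidant response element, TGACNNNGC, 134 bases before the start. The capitals mark it as its reverse complement, since it reads that way on the opposite strand. The sequence spans the 250 bases before the RefSeq start at chr3:122245307-122245556 (GRCm38.p6, plus strand), read 5′ to 3′.
Gclm: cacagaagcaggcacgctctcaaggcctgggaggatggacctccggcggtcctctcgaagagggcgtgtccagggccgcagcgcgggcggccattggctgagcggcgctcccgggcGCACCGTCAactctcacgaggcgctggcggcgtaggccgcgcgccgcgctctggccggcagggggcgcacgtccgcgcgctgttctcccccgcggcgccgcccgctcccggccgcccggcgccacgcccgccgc
The same letters, searched on both strands, were 56 bases before the start of Sod1 and were not in the windows of Cat and Osgin1, and 10.2% of 32851 promoters of the same length held them. The match is of letters and says nothing of binding. Gclc lost its call without control replicates 1 or 4, cocktail replicates 2 or 3 or obese replicates 1, 3 or 4 (edgeR adjusted p from 0.0504 to 0.0976). Keap1 was called without control replicate 2 or obese replicate 4 (edgeR adjusted p from 0.0161 to 0.0356). Osgin1 lost its call without control replicates 1, 2, 3 or 4, cocktail replicates 2 or 3 or obese replicates 1, 3 or 4 (edgeR adjusted p from 0.0518 to 0.0955).

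In the circadian loop the activators Arntl, Clock and Npas2 fell, and the repressors did not move as one. Of 20 core genes, 3 rose and 8 fell, or 15% and 40% (median log2 fold change -0.15, or 0.27 with library totals alone), and groups did not overlap in 11. Arntl, which encodes BMAL1, stood at 6.397, 20.05, 13.5 and 17.2 CPM in control replicates 1 to 4 and 2.05, 2.52, 2.54 and 3.06 CPM in obese replicates 1 to 4. For Arntl the log2 fold change was -2.49 (SE 0.3, edgeR adjusted p = 0.000259). Control replicate 1 was well under the other controls, and all obese libraries were near the same low level. Its partners Clock and Npas2 fell from 95.9 ± 8.88 to 56.8 ± 3.13 CPM (log2 fold change -0.76, SE 0.096, edgeR adjusted p = 0.000299) and from 8.25 ± 1.69 to 4.095 ± 0.928 CPM (log2 fold change -1.01, SE 0.18, edgeR adjusted p = 0.00173). Per2 stood at 34.1, 32.7, 29.5 and 16.1 CPM in control replicates 1 to 4 and 119, 71.7, 91.4 and 93.2 CPM in obese replicates 1 to 4. For Per2 the log2 fold change was 1.74 (SE 0.22, edgeR adjusted p = 0.000368). Per3 stood at 47.8, 42.7, 47.5 and 27.1 CPM in control replicates 1 to 4 and 160.01, 145, 110.02 and 120.1 CPM in obese replicates 1 to 4. For Per3 the log2 fold change was 1.696 (SE 0.18, edgeR adjusted p = 0.000107). In both the lowest control was replicate 4. Per1 was 108 ± 40.8 and 162 ± 37.1 CPM in control and obese hearts (log2 fold change 0.58, SE 0.27, edgeR adjusted p = 0.121) and not called. The cryptochromes differed: Cry2 was at log2 -0.41 and called, Cry1 log2 0.38 and not. The repressors of Arntl, the REV-ERB pair, went opposite ways. Nr1d1 fell from 213 ± 15.3 to 102 ± 43.1 CPM (log2 fold change -1.07, SE 0.34, edgeR adjusted p = 0.0354). Nr1d2 rose from 106 ± 12.01 to 149 ± 17.5 CPM (log2 fold change 0.49, SE 0.12, edgeR adjusted p = 0.00716). Per kilobase, Nr1d1 made up 77.9% ± 2.88 in control hearts and 52.4% ± 10.99 in obese hearts of the pair, and obese replicate 3 was the lowest. Cry1 was called without obese replicate 2 (edgeR adjusted p = 0.0489). Nr1d1 lost its call without control replicates 1, 2, 3 or 4 or obese replicates 1 or 4 (edgeR adjusted p from 0.0511 to 0.0715).

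Among 14 output genes, 3 rose and 4 fell, or 21.4% and 28.6% (median log2 fold change -0.08, or 0.03 with upper-quartile scaling, 0.34 with library totals alone and 0.03 with the intronic share as a covariate). The PAR-domain factors Tef, Hlf and Dbp bind the D-box. Tef rose from 121 ± 23.9 to 198 ± 16.6 CPM (log2 fold change 0.71, SE 0.14, edgeR adjusted p = 0.00332). Hlf rose from 31.999 ± 8.26 to 51.4 ± 7.19 CPM (log2 fold change 0.68, SE 0.19, edgeR adjusted p = 0.0189). Dbp stood at 69.8, 43.6, 53.8 and 36.2 CPM in control replicates 1 to 4 and 71.4, 83.2, 29.6 and 76.9 CPM in obese replicates 1 to 4 (edgeR adjusted p = 0.434). Dbp was the 1 of the 3 not called, and obese replicate 3 lay below all controls while the other obese libraries lay above all of them. Wee1, a mitotic kinase under clock control, rose from 8.25 ± 2.86 to 18.7 ± 4.47 CPM (log2 fold change 1.18, SE 0.23, edgeR adjusted p = 0.00272). Klf10 was at log2 -0.93, Klf9 log2 -0.49 and Tspan4 log2 -0.43, all called lower. No source used here gives collection times, and a difference in the hour of collection and a difference in the clock cannot be told apart. Hlf lost its call without control replicates 2 or 4 or obese replicate 4 (edgeR adjusted p from 0.0515 to 0.0583). Klf9 lost its call without control replicates 1 or 3 or obese replicates 1 or 2 (edgeR adjusted p from 0.0613 to 0.0848). Tspan4 lost its call without control replicate 1 or obese replicates 1 or 3 (edgeR adjusted p from 0.0633 to 0.0794).

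Promoters of 2 risen clock genes are shown because they held the motifs searched for, in capitals: the D-box TTATGTAA in Per3, 205 and 158 bases before the start, and the E-box CACGTG, which BMAL1 and CLOCK bind, in Tef, 127 bases before it. Each is the 250 bases before the RefSeq start (GRCm38.p6), read 5′ to 3′ on the gene's strand, at chr4:151044666-151044915 (minus strand) and chr15:81802423-81802672 (plus strand).
Per3: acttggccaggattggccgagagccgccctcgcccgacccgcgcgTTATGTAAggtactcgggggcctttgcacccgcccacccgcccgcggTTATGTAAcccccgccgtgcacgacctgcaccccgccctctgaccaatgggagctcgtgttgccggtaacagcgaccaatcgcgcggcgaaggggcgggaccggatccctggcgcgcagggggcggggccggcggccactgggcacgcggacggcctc
Tef: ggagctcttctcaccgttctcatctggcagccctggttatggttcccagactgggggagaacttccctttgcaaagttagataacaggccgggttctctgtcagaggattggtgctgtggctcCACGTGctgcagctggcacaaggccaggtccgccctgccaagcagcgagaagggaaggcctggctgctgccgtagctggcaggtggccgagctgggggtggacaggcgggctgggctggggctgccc
Over all 32851 promoters of this length, searched on both strands, 0.819% held the D-box, 6.02% the E-box and 5.38% the 3′ part of the ROR element, TAGGTCA or TGGGTCA. None of these letters were in the windows of Arntl, Clock, Npas2, Nr1d1, Nr1d2, Hlf and Dbp, which says only that they are not in these 250 bases. Other spellings of the elements were not searched, so the search cannot show that a promoter lacks an element.

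**Figure D4:**
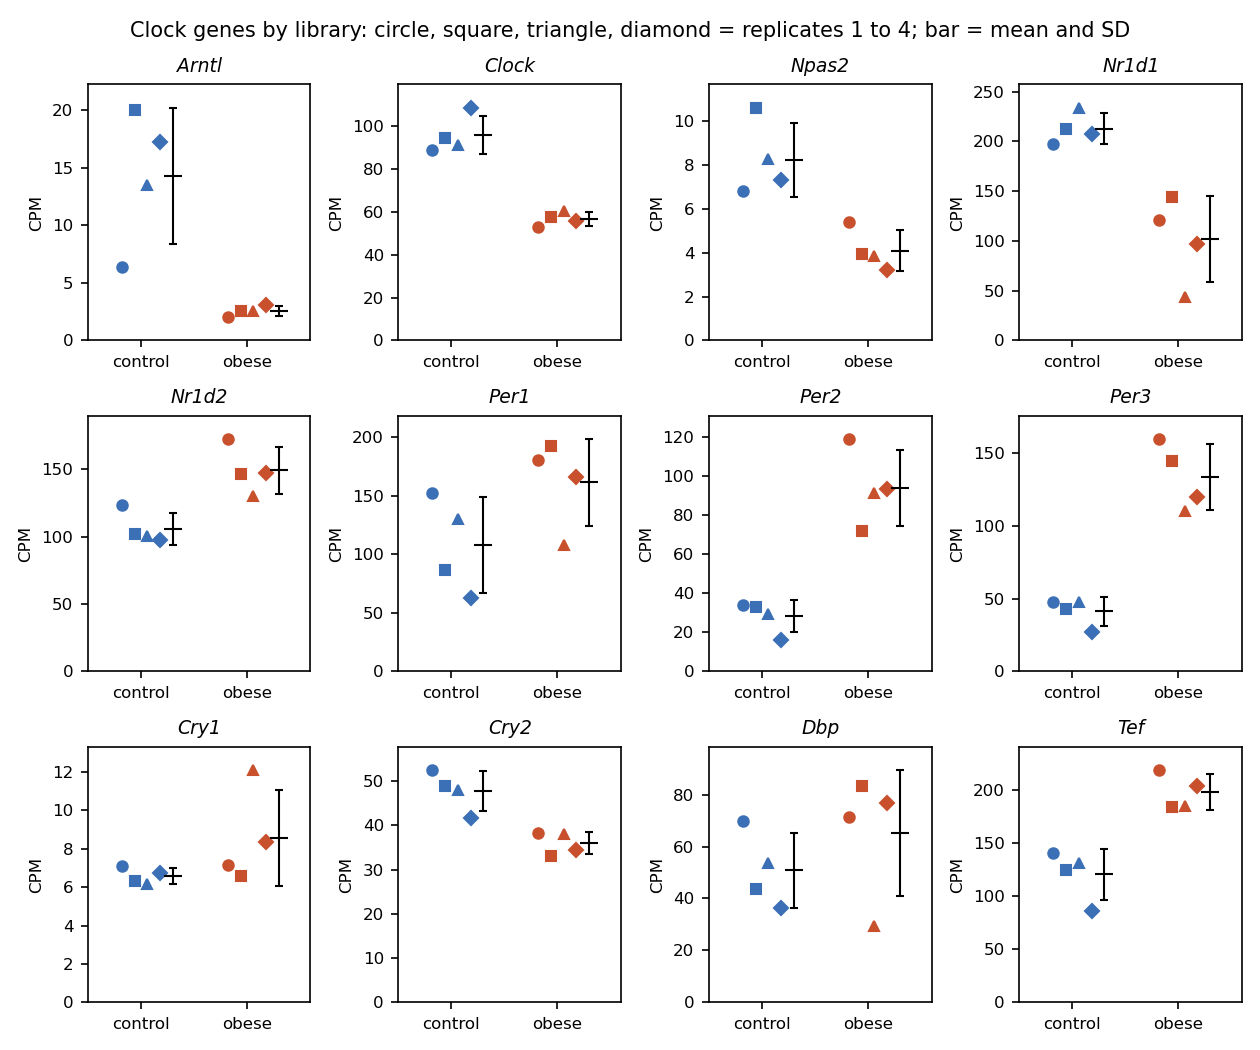
Levels of 12 clock genes in CPM (vertical axes, each from 0) in 4 control-diet libraries (blue) and 4 obese libraries (red), with mean and SD beside them. Arntl, Clock and Npas2 are lower in all obese libraries, Per2, Per3 and Tef higher, and Per1, Cry1 and Dbp overlap.

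In iron handling the uptake receptor rose and storage and export genes fell, and oxygen-sensing genes went both ways. Of 24 hypoxia genes, 5 rose and 10 fell, or 20.8% and 41.7% (median log2 fold change -0.18, or 0.26 with library totals alone). Vegfa, the main angiogenic factor, stood at 156, 176, 154 and 199 CPM in control replicates 1 to 4 and 449, 321, 199 and 375 CPM in obese replicates 1 to 4. For Vegfa the log2 fold change was 0.97 (SE 0.21, edgeR adjusted p = 0.00453). Vegfb, which acts on fatty acid transport in endothelium, was at log2 -0.67, and called. Per kilobase, Vegfb made up 65.6% ± 5.5004 in control hearts and 38.99% ± 7.61 in obese hearts of the pair. P4ha2, a prolyl hydroxylase of collagen, rose from 18.2 ± 2.14 to 38.7 ± 6.399 CPM (log2 fold change 1.09, SE 0.15, edgeR adjusted p = 0.000381). Its relative P4ha1 rose from 17.8 ± 2.35 to 26.9 ± 0.598 CPM (log2 fold change 0.597, SE 0.12, edgeR adjusted p = 0.00351), and so did Kdm3a (log2 0.47) and Car9 (log2 1.45). Of the oxygen-sensing pathway itself, Hif1a, Egln1 and Vhl were at log2 -0.49, log2 -0.49 and log2 -0.46, all called. Mxi1, which with Pdk1 above was among the other falls, went from 47.04 ± 1.72 to 26.3 ± 4.96 CPM (log2 fold change -0.84, SE 0.12, edgeR adjusted p = 0.000539). Of 20 iron genes tested of 21, 2 rose and 8 fell, or 10% and 40% (median log2 fold change -0.32, or 0.12 with library totals alone). Tfrc, the transferrin receptor through which cells take up iron, stood at 14.9, 16.9, 15.2 and 14.96 CPM in control replicates 1 to 4 and 49.2, 66.2, 48.2 and 58.4 CPM in obese replicates 1 to 4. For Tfrc the log2 fold change was 1.84 (SE 0.13, edgeR adjusted p = 1.08e-05). Steap3, the reductase of the same endosome, rose from 19.6 ± 2.79 to 32.996 ± 4.51 CPM (log2 fold change 0.75, SE 0.13, edgeR adjusted p = 0.00117). Ferritin heavy chain Fth1, for storage, fell from 1027 ± 203 to 462 ± 50.04 CPM (log2 fold change -1.15, SE 0.16, edgeR adjusted p = 0.000526). Ferritin light chain Ftl1 (log2 -1.07) and the exporter ferroportin Slc40a1 (log2 -1.63) fell too. Ceruloplasmin Cp, an iron oxidase, fell from 247 ± 45.6 to 110.1 ± 19.5 CPM (log2 fold change -1.17, SE 0.16, edgeR adjusted p = 0.000445). The RNA-binding regulators Aco1 and Ireb2 were at log2 -0.34 and log2 -0.12 and not called. Of 30 cholesterol genes, 3 rose and 12 fell, or 10% and 40% (median log2 fold change -0.16, or 0.27 with library totals alone and 0.13 with the intronic share as a covariate). Fdft1, squalene synthase, fell from 31.3 ± 2.75 to 12.998 ± 2.91 CPM (log2 fold change -1.27, SE 0.198, edgeR adjusted p = 0.000839). Sqle (log2 0.52) and Abcg1 (log2 0.49) were among the rises, and both lost their calls without some libraries. Kdm3a lost its call without control replicates 1, 3 or 4 or obese replicate 1 (edgeR adjusted p from 0.0645 to 0.0735). Egln1 lost its call without control replicates 1, 3 or 4 or obese replicates 1, 2 or 3 (edgeR adjusted p from 0.0626 to 0.09701). Vhl lost its call without control replicates 1, 3 or 4 or obese replicates 1 or 4 (edgeR adjusted p from 0.06104 to 0.0952). Aco1 was called without control replicate 2 or obese replicate 4 (edgeR adjusted p from 0.0122 to 0.0299). Sqle lost its call without control replicates 1, 3 or 4, cocktail replicates 1 or 2 or obese replicates 1, 2, 3 or 4 (edgeR adjusted p from 0.0526 to 0.114). Abcg1 lost its call without control replicates 2, 3 or 4 or obese replicate 2 (edgeR adjusted p from 0.0516 to 0.0564).

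Sarcomere genes fell in part, with M-band and Z-disc genes among them. Of 27 sarcomere genes, 0 rose and 15 fell, or 55.6% (median log2 fold change -0.54, or 0.02 with the intronic share as a covariate). Myom2, an M-band protein of adult heart, stood at 2629, 1979, 2184 and 1971 CPM in control replicates 1 to 4 and 796, 539.5, 664 and 716 CPM in obese replicates 1 to 4. For Myom2 the log2 fold change was -1.69 (SE 0.16, edgeR adjusted p = 4.69e-05). Myoz2, a Z-disc binder of calcineurin, fell from 563 ± 90.8 to 228 ± 27.1 CPM (log2 fold change -1.304, SE 0.14, edgeR adjusted p = 0.000129). Desmin (Des) fell from 1068 ± 167 to 525 ± 48.5 CPM (log2 fold change -1.03, SE 0.14, edgeR adjusted p = 0.000375), and so did the stretch-responsive Z-disc gene Csrp3 (log2 -1.27). The fast heart myosin Myh6 was 17963 ± 2636 and 14055 ± 2495 CPM in control and obese hearts and not called (edgeR adjusted p = 0.135), and titin (Ttn) was at log2 -0.04. The slow myosin Myh7 was 1399 ± 428 and 916 ± 153 CPM in control and obese hearts (log2 fold change -0.61, SE 0.21, edgeR adjusted p = 0.0396). Per kilobase Myh7 made up 5.72% ± 1.34 in control hearts and 5.03% ± 1.74 in obese hearts of the pair, with overlapping groups. Of 26 calcium-handling genes, 0 rose and 3 fell, or 11.5% (median log2 fold change 0.02, or -0.02 with median-ratio scaling), a share under that of all genes. The calcium pump Atp2a2 fell from 10984 ± 2385 to 6319 ± 1459.7 CPM (log2 fold change -0.798, SE 0.21, edgeR adjusted p = 0.0117). Its inhibitor Pln fell from 3659 ± 866 to 1870.3 ± 493 CPM (log2 fold change -0.97, SE 0.23, edgeR adjusted p = 0.008298). Groups overlapped in both. Jph1, which ties the release units to the membrane, fell from 29.5 ± 0.741 to 16.3 ± 2.97 CPM (log2 fold change -0.85, SE 0.14, edgeR adjusted p = 0.00101). The release channel Ryr2, the exchanger Slc8a1 and the calcium channel Cacna1c were at log2 0.01, log2 -0.35 and log2 0.32 and not called. Sarcolipin (Sln), an atrial gene, was 0, 0.803, 1.22 and 2.95 CPM in control replicates 1 to 4 and 0.188, 4.53, 128 and 12.6 CPM in obese replicates 1 to 4, and the high value is that of the library with the most atrial markers. Myh6 was called without control replicate 2 (edgeR adjusted p = 0.03496). Myh7 lost its call without control replicates 1 or 4, cocktail replicate 3 or obese replicates 1, 3 or 4 (edgeR adjusted p from 0.0501 to 0.136).

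Of 21 intercalated disc genes, 0 rose and 13 fell, or 61.9% (median log2 fold change -0.5). The desmosomal gene Dsg2 fell from 153 ± 24.4 to 75.999 ± 12.9 CPM (log2 fold change -1.01, SE 0.15, edgeR adjusted p = 0.000632). Jup, of the same junction, fell from 359 ± 37.9 to 193 ± 34.4 CPM (log2 fold change -0.897, SE 0.16, edgeR adjusted p = 0.00145). Pkp2 (log2 -0.62), the gap junction gene Gja1 (log2 -0.83) and N-cadherin Cdh2 (log2 -0.799) fell too. Of 74 potassium channel genes tested of 92, 15 rose and 6 fell, or 20.3% and 8.1% (median log2 fold change 0.29). The 6 falls included channels of ventricular muscle and vessel wall. Kcnj2, the main inward rectifier of ventricle, fell from 72.8 ± 12.4 to 40.7 ± 7.35 CPM (log2 fold change -0.84, SE 0.15, edgeR adjusted p = 0.00193). Kcnj8, of mural cells, fell from 27.8 ± 3.49 to 15.6 ± 2.23 CPM (log2 fold change -0.84, SE 0.16, edgeR adjusted p = 0.00245). The others were Kcnip2, the partner of the transient outward channel (log2 -1.14), Kcnj11, of the ATP-sensitive channel (log2 -0.63), Kcnk3 (log2 -0.58) and Kcnq5 (log2 -1.502). The rises were in genes under 5 CPM on the control diet, except Kcnd3 (30.3 ± 2.39 and 40.5 ± 3.74 CPM in control and obese hearts). Kcnj14, for example, rose from 0.126 ± 0.0636 to 0.761 ± 0.396 CPM (log2 fold change 2.58, SE 0.51, edgeR adjusted p = 0.00297). Kcnd1 rose from 0.4696 ± 0.121 to 1.21 ± 0.253 CPM (log2 fold change 1.37, SE 0.27, edgeR adjusted p = 0.00274). Mural markers summed to 1473 to 1682 CPM in control hearts and 956 to 1295 CPM in obese hearts, and their part in Kcnj8 was not tested. Of 27 adrenergic signalling genes, 3 rose and 8 fell, or 11.1% and 29.6% (median log2 fold change -0.15, or 0.25 with library totals alone). The alpha-adrenergic receptor Adra1b fell from 37.98 ± 6.68 to 17.9 ± 3.59 CPM (log2 fold change -1.08, SE 0.17, edgeR adjusted p = 0.000859). The phosphodiesterase Pde3a fell from 274 ± 54.7 to 112 ± 22.4 CPM (log2 fold change -1.29, SE 0.17, edgeR adjusted p = 0.000372). The receptor kinase Grk5 fell from 89.7 ± 10.9 to 57.5 ± 8.03 CPM (log2 fold change -0.64, SE 0.13, edgeR adjusted p = 0.00355). The beta receptor Adrb1 was at log2 0.02 and not called. The rises were Pde4a (log2 0.47), Pde4b (log2 0.41) and Adrb3. Adrb3 stood at 0, 0, 0 and 0.0624 CPM in control replicates 1 to 4 and 0.171, 0.283, 0.272 and 0 CPM in obese replicates 1 to 4, too few counts for a fold, and was not tested with the 8 libraries alone. Kcnk3 lost its call without control replicates 1 or 4 (edgeR adjusted p from 0.0507 to 0.0525). Pde4a lost its call without control replicates 3 or 4 or obese replicates 1 or 4 (edgeR adjusted p from 0.0513 to 0.0729). Pde4b lost its call without control replicates 1, 2, 3 or 4 or obese replicates 1 or 2 (edgeR adjusted p from 0.0604 to 0.0941). Adrb3 lost its call without control replicates 1, 2 or 3, cocktail replicates 2 or 3 or obese replicates 1, 2 or 3 (edgeR adjusted p from 0.0506 to 0.102).

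Collagen chains had more rises than falls. Of 40 collagen chains tested of 44, 10 rose and 3 fell, or 25% and 7.5% (median log2 fold change 0.72). Minor chains were among the rises. Col27a1, a cartilage-type fibrillar chain, stood at 3.27, 1.58, 3.15 and 3.65 CPM in control replicates 1 to 4 and 15.5, 18.9, 13.5 and 13.7 CPM in obese replicates 1 to 4. For Col27a1 the log2 fold change was 2.402 (SE 0.23, edgeR adjusted p = 4.75e-05). Col11a2 rose from 0.812 ± 0.243 to 3.56 ± 0.622 CPM (log2 fold change 2.13, SE 0.23, edgeR adjusted p = 0.000134) and Col16a1 from 2.74 ± 0.361 to 6.098 ± 1.68 CPM (log2 fold change 1.15, SE 0.202, edgeR adjusted p = 0.00153). The risen chains Col5a1, Col6a2, Col6a3 and Col15a1 were at log2 0.74, log2 0.75, log2 0.79 and log2 1.21. The main fibrillar chain Col1a1 stood at 67.04, 34.1, 51.5 and 50.2 CPM in control replicates 1 to 4 and 50.1, 126, 66.6 and 61.97 CPM in obese replicates 1 to 4 (edgeR adjusted p = 0.201). Neither it nor Col1a2 (log2 0.67) nor Col3a1 (log2 0.57) was called. Col1a2 was called higher with the 8 libraries alone, DESeq2, the 1 CPM filter, protein-coding genes only, upper-quartile scaling or library totals. The basement membrane chain Col4a1 fell from 345 ± 21.8 to 245 ± 51.5 CPM (log2 fold change -0.495, SE 0.14, edgeR adjusted p = 0.0187). Its partner Col4a2 fell from 282 ± 23.3 to 176 ± 42.01 CPM (log2 fold change -0.68, SE 0.16, edgeR adjusted p = 0.00635), and Col28a1 fell too (log2 -1.33). Fibroblast markers summed to 1419.96, 1242, 1469.8 and 1331 CPM in control replicates 1 to 4 and 994, 1582, 2550.2 and 1367 CPM in obese replicates 1 to 4. Endothelial markers summed to 1395 to 1648 CPM in control hearts and 1183 to 1431 CPM in obese hearts. The part of both cell types in these values was not tested. Without obese replicate 3 the collagens had 10 rises and 3 falls. Of 32 matrix enzymes and inhibitors, 6 rose and 6 fell, or 18.8% and 18.8% (median log2 fold change 0.22). Both shares are near those of all genes. Bmp1, the procollagen C-proteinase, rose from 24.5 ± 2.91 to 54.1 ± 10.99 CPM (log2 fold change 1.14, SE 0.15, edgeR adjusted p = 0.000307). Adamts10, which binds microfibrils, rose from 24.4 ± 2.603 to 55.8 ± 10.3 CPM (log2 fold change 1.19, SE 0.15, edgeR adjusted p = 0.0002896). Lox, which cross-links collagen, fell from 9.64 ± 1.897 to 3.59 ± 1.61 CPM (log2 fold change -1.43, SE 0.28, edgeR adjusted p = 0.00311). The aggrecanase Adamts5 fell from 64.1 ± 3.11 to 28.1 ± 6.71 CPM (log2 fold change -1.19, SE 0.14, edgeR adjusted p = 0.000229), and the membrane protease Mmp14 from 15.7 ± 1.16 to 8.35 ± 1.86 CPM (log2 fold change -0.91, SE 0.17, edgeR adjusted p = 0.00223). Col1a2 was called without cocktail replicate 1 or obese replicate 1 (edgeR adjusted p from 0.0271 to 0.0344).

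Antigen presentation genes fell in part, and interferon, complement and proliferation genes gave about as few calls as genes at large or fewer. Of 22 MHC and antigen presentation genes, 0 rose and 11 fell, or 50% (median log2 fold change -0.49). B2m, the light chain of class I, fell from 194 ± 30.4 to 119 ± 14.6 CPM (log2 fold change -0.71, SE 0.17, edgeR adjusted p = 0.00798), as did the heavy chains H2-K1 (log2 -0.65), H2-D1 (log2 -0.54) and H2-T22 (log2 -0.74). Class I heavy chain genes are near-copies of one another, which makes their levels uncertain. Leaving out 1 library left between 5 and 12 called lower, and library totals alone left 0. Lymphocyte markers, of which 4 of 12 fell, summed to 13.4 to 22.4 CPM in control hearts and 6.104 to 13.02 CPM in obese hearts, and their part in these values was not tested. Of 30 interferon genes, 3 rose and 2 fell, or 10% and 6.7% (median log2 fold change 0.06). Oas2, a sensor of double-stranded RNA, rose from 14.05 ± 3.07 to 33.6 ± 8.15 CPM (log2 fold change 1.26, SE 0.23, edgeR adjusted p = 0.00194), and Mx2 and Xaf1 rose too, log2 0.97 and log2 0.47. Rsad2 fell from 25.3 ± 3.26 to 13.7 ± 1.802 CPM (log2 fold change -0.88, SE 0.15, edgeR adjusted p = 0.0012004) and Ifit2 from 19.1 ± 3.16 to 10.96 ± 1.18 CPM (log2 fold change -0.8, SE 0.197, edgeR adjusted p = 0.00916). Of 22 complement genes, 2 rose and 1 fell, or 9.1% and 4.5% (median log2 fold change -0.05, or 0.06 with upper-quartile scaling, 0.41 with library totals alone and 0.26 with the intronic share as a covariate). Cfp, properdin, rose from 3.75 ± 0.212 to 8.75 ± 0.842 CPM (log2 fold change 1.22, SE 0.15, edgeR adjusted p = 0.000268), and C4a rose too (log2 1.38). Cd59a, which shields cells, fell from 33.2 ± 4.502 to 20.6 ± 3.27 CPM (log2 fold change -0.69, SE 0.14, edgeR adjusted p = 0.00287). Of 29 proliferation genes, 4 rose and 1 fell, or 13.8% and 3.4% (median log2 fold change 0.19). Pcna fell from 11.4 ± 2.18 to 6.67 ± 0.902 CPM (log2 fold change -0.78, SE 0.197, edgeR adjusted p = 0.0109). The risen genes Mcm5, Tyms, Prc1 and Birc5 were at log2 0.76, log2 0.68, log2 0.66 and log2 1.22. Mki67, a marker of cycling cells, stood at 15.04, 9.55, 7.48 and 7.22 CPM in control replicates 1 to 4 and 10.2, 22.6, 5.705 and 9.83 CPM in obese replicates 1 to 4 and not called (edgeR adjusted p = 0.567). Mx2 lost its call without control replicate 1 or obese replicate 2 (edgeR adjusted p from 0.0595 to 0.0615). Xaf1 lost its call without control replicates 2, 3 or 4 or obese replicates 1, 2 or 4 (edgeR adjusted p from 0.0554 to 0.0931). C4a lost its call without control replicates 3 or 4 or obese replicates 2 or 3 (edgeR adjusted p from 0.0538 to 0.0886). Tyms lost its call without control replicate 3 or obese replicate 2 (edgeR adjusted p from 0.0529 to 0.0624). Prc1 lost its call without control replicates 3 or 4 or obese replicates 2 or 4 (edgeR adjusted p from 0.0576 to 0.0805). Birc5 lost its call without control replicates 3 or 4 or obese replicates 1 or 2 (edgeR adjusted p from 0.0747 to 0.105).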

How the data were processed

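RNA sequencing of hearts gave 1 table of gene counts for 11 libraries, all columns of which matched a sample. The deposited counts are whole numbers per Ensembl gene and are not scaled; the submitters' processing notes name cutadapt, HISAT2, StringTie and the build GRCm38, without versions or settings. The annotation, the use of strand and whether the counts are counted reads or estimates from coverage are not stated there. Of 55487 identifiers, 55227 were named through GENCODE M21 and the other 260 were left without a name; 113 symbols stood on more than 1 identifier.

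Genes were kept by edgeR's filterByExpr (minimum count 10, minimum total 15) and fitted with the quasi-likelihood method of edgeR 4.0.16 (R 4.3.3, TMM scaling, robust) in 1 model of the 3 groups. Each p-value was adjusted over all 23779 genes by the Benjamini-Hochberg method. The SE was taken from the F statistic (|log2 fold change|/√F). CPM used TMM-scaled library sizes and CPM per kilobase the exon length from GENCODE M21. Library measures were compared by exact permutation. Alternatives were 4 other scalings, 3 other gene sets, the 8 libraries alone, thinned counts, limma voom (limma 3.58.1), DESeq2 1.42.0, a replicate block, the intronic share as a covariate and leaving out each library. On simulated data for this comparison with 23083 genes, the fit recovered 80% of 90 genes changed by a log2 of 1. It recovered 95.45% of 110 changed by a log2 of 2, and there were 11 false calls. A change in 30.1% of the genes, the share called here, was not tested in this way.

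The 43 pathway and 14 marker lists and the comparison itself were chosen with earlier results of these data known. Genes were named by a rule: the 8 largest rises and 8 largest falls with a mean of at least 10 CPM and no overlap between groups, the 8 smallest p beyond these, up to 4 called members of each list by smallest p (up to 3 in each direction where both occurred), the lowest and highest member of a list, and a few always given. Beside the cell type markers, 324 genes are named, of which 184 came from the rule; the other 140 were chosen after their values were seen. Some genes that the rule picks are not reported here. Promoters were taken from RefSeq (GRCm38.p6), which gave 13 of the 15 genes looked up. Python 3.11.15 with pandas 2.3.3 was used for summaries.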

Additional observations from a re-analysis of the deposited data

Results flagged for a closer look

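A library was far from the other 3 of its group in 38 of 708 groups of 4 values examined, by Dixon's test of the gap against the range. Chance flags about 1 in 20 groups. The groups were the 4 control or 4 obese values of each gene named in the text, of 13 isoform shares, of marker and list sums and of 5 library measures. Control replicate 2 was the library set apart in 10 of them, obese replicate 2 in 9 and obese replicate 3 in 6.

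Control replicate 1 stood apart as the highest in H2-D1 (102 CPM against 78.6 to 81.5), Nfe2l2 (78.6 CPM against 60.2 to 61.9) and Nr1d2 (124 CPM against 97.8 to 102). Control replicate 2 stood apart as the highest in the share of Slc2a1 of Slc2a1 and Slc2a4 per kilobase (13.1% against 9.39 to 9.86%), Kdm3a (50.1 CPM against 34.01 to 36.04), Rbm5 (131 CPM against 82.1 to 86.8) and Tfrc (16.9 CPM against 14.9 to 15.2). The same held for mt-Rnr1 (79.8 CPM against 36.4 to 43.5). Control replicate 2 stood apart as the lowest in Cd59a (26.5 CPM against 35.2 to 35.8), Pex14 (15.1 CPM against 17.4 to 17.5), Pfkl (44.2 CPM against 53.4 to 54.8) and Slc25a20 (87.2 CPM against 120.4 to 126). The same held for the summed ventricular myocyte markers (25119.9 CPM against 34495 to 35784). Control replicate 3 stood apart as the highest in Hist1h1t (0.0224 CPM against 0 in the others). Control replicate 4 stood apart as the highest in Adrb3 (0.0624 CPM against 0 in the others), Bnip3 (549.6 CPM against 392 to 411), Hist1h1e (30.5 CPM against 13.2 to 16.1) and Mff (88.1 CPM against 75.03 to 76.9). The same held for Pfkfb2 (48.01 CPM against 44.2 to 44.8). Control replicate 4 stood apart as the lowest in the share of Cpt1a of Cpt1a and Cpt1b per kilobase (4.14% against 6.07 to 6.31%). Obese replicate 2 stood apart as the highest in the share of Myh7 of Myh6 and Myh7 per kilobase (7.62% against 3.93 to 4.35%), Col3a1 (135 CPM against 47.5 to 61.9), Col5a1 (61.1 CPM against 40.4 to 42.5) and H2-T22 (13.1 CPM against 9.51 to 9.85). The same held for Hist1h1a (1.08 CPM against 0.612 to 0.687), Rbm3 (27.9 CPM against 23.2 to 23.8) and mt-Rnr1 (749 CPM against 115 to 212). Obese replicate 2 stood apart as the lowest in Dsg2 (56.7 CPM against 81.7 to 83.8) and Fbxo32 (116 CPM against 159.7 to 165). Obese replicate 3 stood apart as the highest in Cirbp (15.8 CPM against 11.8 to 12.4), Pdk4 (494 CPM against 224 to 252), Scd4 (11.8 CPM against 6.13 to 6.76) and Sln (128 CPM against 0.188 to 12.6). The same held for Ucp2 (165 CPM against 63.6 to 77.4) and the summed atrial myocyte markers (2509 CPM against 166 to 377). Obese replicate 4 stood apart as the highest in the library total (67247567 counts against 52736860 to 54974444) and Cox8a (26.6 CPM against 21.3 to 22.1). Obese replicate 4 stood apart as the lowest in Car9 (0.495 CPM against 0.831 to 0.8904). Obese replicate 3 had both the most atrial marker counts and the highest Sln, an atrial gene, and the atrial markers had no called member of 10.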

How the results depend on the processing

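Against 3429 genes higher and 3737 lower, library totals gave 9061 and 960 and the intronic covariate 35 and 86. The intronic share did not overlap between the groups, so the covariate fit cannot separate it from diet. Leaving out 1 library gave 2117 to 3752 higher and 2800 to 4401 lower, with the fewest higher calls without control replicate 4 or 1 (2117 and 2190). The other scalings, filters, fits and DESeq2 stayed within 1.5 times of both counts. List medians that turned to the other sign were, with library totals alone those of the glycolysis (0.202), energy regulator (0.281), mitochondrial carrier (0.2905), ubiquinone (0.041), splicing factor (0.241), autophagy (0.0104), atrophy ligase (0.111), clock loop (0.273), clock output (0.343), hypoxia (0.264), iron (0.115), cholesterol (0.273), complement (0.408) and adrenergic (0.254) lists. They were, with the intronic share as a covariate those of the ketone use (0.0609), glycolysis (0.0959), energy regulator (0.0166), complex III (0.0404), complex IV (0.0893), mitochondrial ribosome (0.128), ubiquinone (0.117), clock output (0.0323), cholesterol (0.128), sarcomere (0.0193) and complement (0.261) lists. They were also, with upper-quartile scaling those of the clock output (0.0253) and complement (0.0609) lists, with protein-coding genes only those of the clock output (0.0226) and complement (0.055) lists, with the 1 CPM filter that of the complement (0.0288) list, and with median-ratio scaling or DESeq2 that of the calcium handling list (-0.0183). Leaving out 1 library turned the sign of the medians of clock output (-0.181 to 0.0344), calcium handling (-0.0872 to 0.0173), complement (-0.198 to 0.102), interferon (-0.0166 to 0.121) and proliferation (-0.0977 to 0.319).

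With library totals alone the log2 fold change turned sign in 12 genes called in at least one of the fits, Acad8 (0.261), Atg5 (0.336), Cry2 (0.0078), Dnm1l (0.3296), Esrra (0.305), Gclc (0.1496), Ireb2 (0.302), Ldha (0.318), Ncor1 (0.0388), Pex14 (0.3997), Psmd9 (0.376) and Ttn (0.387), and in 22 named genes called in neither. With the intronic share as a covariate the log2 fold change turned sign in 19 genes called in at least one of the fits, Cox6a1 (0.0919), Cox7a1 (0.0866), Cox8a (0.169), Dlat (0.0652), Gja1 (0.175), Kdm3a (-0.0049), Myh7 (0.123), Nqo1 (0.1598), Pcna (0.026), Pdhx (0.0209), Pex19 (0.0802), Pgm2 (-0.0496), Pln (0.104), Prdx1 (0.051), Prdx5 (0.0161), Rbm5 (-0.183), Slc16a1 (0.0609), Snrpd3 (0.0648) and Srsf11 (-0.0783), and in 27 named genes called in neither. Of 265 called genes named in the text, 241 lost their call with the intronic covariate and 67 with library totals. With library totals Cry2, Gclc and Ncor1 lost their call and turned sign, and the other 9 of those 12, not called before, were called higher. The genes that kept the sign but lost the call with library totals were Acacb, Atg13, Atg9a, B2m, Bckdk, Cd59a, Col28a1, Col4a1, Col4a2, Cox6a1, Cox8a, Cpt1a, Dlat, Egln1, Fbxo32, Gabpa, Gja1, Gpi1, Grk5, H2-D1, H2-K1, H2-T22, Hif1a, Hist1h1e, Ifit2, Kcnj11, Kcnk3, Klf10, Klf9, Mfn1, Mfn2, Mmp14, Myh7, Nbr1, Nr1d1, Opa1, Optn, Pcna, Pdhb, Pdhx, Pex16, Pex19, Pex3, Pkp2, Ppp1r3a, Prdx5, Prdx6, Prkaa2, Psmb8, Pygm, Rbm3, Slc25a12, Slc25a13, Slc2a1, Snrpa1, Snrpd3, Snrpe, Snrpg, Tax1bp1, Trim63, Tspan4, Vegfb, Vhl and mt-Atp6. Calls lost with no filter were those of Adrb3, Birc5, Cidec, Gclc, Nr1d1, Osgin1, Pde4b, Pkhd1l1, Plin1, Rbm5, Slc25a45, Slc25a47, Sqle, Srsf11, Vhl, Xaf1, mt-Rnr1, mt-Td and mt-Tn. With limma voom they were those of Adrb3, C4a, Cidec, Cntn2, Osgin1, Pkhd1l1, Plin1, mt-Rnr1, mt-Td and mt-Tn. Upper-quartile scaling lost Dlat, Egln1, Gclc, Klf9, Myh7, Nr1d1, Pygm, Trim63, Tspan4, Vhl and mt-Atp6, and median-ratio scaling lost Osgin1, Pde4b, Ppp1r3c, Rbm5, Slc25a45 and Sqle. DESeq2 kept the calls of all 265. The 8-library fit and the protein-coding set lost 6 each, thinned counts 4 and the 1 CPM filter 1. Genes not tested in a fit are not counted as lost. Of the 324 named genes, 316 were tested with the 1 CPM filter, 316 with protein-coding genes only, 320 with the 8 libraries and 323 with thinned counts. Genes not called with TMM were called with DESeq2 (Acads, Aco1, Bcat2, Col1a2, Hist1h1d, Keap1, Mff, Myh6, Ogdh, Pex5, Rpl3 and Rplp1), with library totals (Adrb1, Cacna1c, Col1a1, Col1a2, Col3a1, Cry1, Hk2, Ndufb2, Nfe2l2, Per1, Pex10, Rbm20 and Ryr2, beside the 9 that turned), with median-ratio scaling (Aco1, Bcat2, Hist1h1d, Keap1 and Rpl3), with upper-quartile scaling (Col1a2, Cry1 and Hk2), with protein-coding genes only (Col1a2, Cry1 and Hk2), with the 1 CPM filter (Col1a2 and Hk2), with the 8 libraries only (Bcat2 and Col1a2), with limma voom (Rpl3) and with thinned counts (Keap1). Adrb3, Cidec, Hist1h1t and Plin1 were not tested with the 8 libraries only. The causes of these changes were not tested.

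Same-numbered control and obese deviations correlated at 0.0062, -0.0236, 0.122 and 0.0505. Control 3 and control 4, but not control 1 or control 2, correlated best with the obese library of their own number. No reference was computed for these values, so they cannot decide whether replicate numbers pair the libraries, and the labels do not say. A fit with the replicate number as a block gave 3315 genes higher and 3797 lower, and in it Adrb3, Gclc, Slc25a25, Sqle, Vhl, mt-Rnr1, mt-Td and mt-Tn were not called and Acads, Bcat2, Ogdh, Oxct1, Rpl3 and Rpl3l were. Leaving out 1 library, the differences between obese and control were, for the library total -36630390.4 to -26565207 counts, for the mitochondrial share -7.51 to -6.14 percentage points, for the intronic share 0.295 to 0.396 percentage points, for the share of the 10 highest genes -4.97 to -3.81 percentage points, for the protein-coding share -2.05 to -1.35 percentage points, with adjusted exact permutation p from 0.0357 to 0.0857. Depth differed between the groups, and with counts thinned to the smallest library total 3351 genes were higher and 3609 lower. Genes near the detection limit, such as Plin1, Cidec, Adrb3 and Car9, rest on few counts.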

Other observations

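Long noncoding RNAs of the imprinted Dlk1-Dio3 region, which are expressed from the maternal chromosome, were higher in obese hearts. Meg3, the first of them, stood at 5.96, 8.13, 8.41 and 5.602 CPM in control replicates 1 to 4 and 24.6, 31.96, 28.2 and 22.3 CPM in obese replicates 1 to 4. For Meg3 the log2 fold change was 1.93 (SE 0.18, edgeR adjusted p = 4.69e-05). Rian, which lies next to it, stood at 4.798, 6.48, 5.16 and 6.27 CPM in control replicates 1 to 4 and 14.4, 20.5, 18.1 and 14.5 CPM in obese replicates 1 to 4. For Rian the log2 fold change was 1.57 (SE 0.19, edgeR adjusted p = 0.000235). Mirg, the third, rose from 0.435 ± 0.108 to 1.57 ± 0.419 CPM (log2 fold change 1.85, SE 0.29, edgeR adjusted p = 0.000767). All 3 genes lie on chromosome 12 of GRCm38, from 109541001 to 109749460 on the plus strand, and in all 3 every obese library was above every control library. These genes, other than Meg3, and the histones below were looked up after their values were seen.

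Linker histone genes, whose proteins bind DNA between nucleosomes, lie together on chromosome 13. Hist1h1c fell to 31.4 CPM or less in every obese library, from at least 129 CPM on the control diet (log2 fold change -2.55, SE 0.16, edgeR adjusted p = 4.86e-06). Hist1h1e fell from 18.6 ± 8.02 to 9.96 ± 1.81 CPM (log2 fold change -0.899, SE 0.23, edgeR adjusted p = 0.0126). Hist1h1d stood at 6.99 ± 2.61 and 4.64 ± 0.4301 CPM in control and obese hearts and was not called (edgeR adjusted p = 0.0542). Of the 3 others tested, Hist1h1a (log2 0.16) and Hist1h1b (log2 0.22) were under 1.5 CPM and not called. Hist1h1t stood at 0, 0, 0.0224 and 0 CPM in control replicates 1 to 4 and 0.0342, 0.141, 0.0959 and 0.175 CPM in obese replicates 1 to 4 and was called higher (edgeR adjusted p = 0.0124), with too few counts for a fold. Hist1h1d was called without control replicates 1 or 3 (edgeR adjusted p from 0.0363 to 0.0399).

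Calls differed between classes of genes. Of 1850 unverified (TEC) loci, 28.3% were called higher and 0.6% lower, of 243 sense-intronic genes 25.5% and 1.6%, of 1578 antisense genes 19.3% and 2.2%, and of 987 lincRNA genes 14.3% and 5.7%. Of 15644 protein-coding genes, 12.2% were called higher and 22.2% lower. Among nuclear protein-coding genes ordered by exon length, the shortest 3910 had 7.6% higher and 26% lower, and the longest 3907 had 18.3% higher and 15.9% lower. Their part in the list counts was not tested.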
